A study of Hyphopichia burtonii and Hyphopichia pseudoburtonii with 16 samples.

Results

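The genes described here are the amino acid biosynthesis genes of 2 yeasts, Hyphopichia pseudoburtonii and Hyphopichia burtonii, followed over the first 30 min after sodium chloride was added to growing cultures. A gene was taken where its annotated name was HIS, LEU, ILV, LYS, ARG, TRP, ARO, MET, SER, THR, HOM, PRO, ASN, CYS or BAT followed by 1 or 2 digits (an end letter was allowed and none occurred), and where its description held none of the words transcription, regulat, permease, ubiquitin or tRNA. The rule found 157 of 12015 genes in the 2 gene tables, 76 of 5900 in H. pseudoburtonii and 81 of 6115 in H. burtonii. They were grouped by name stem into 8 pathways, which are branched chain (ILV, LEU, BAT), aspartate family (HOM, THR, ASN), lysine (LYS), glutamate family (ARG, PRO), histidine (HIS), aromatic (ARO, TRP), sulfur (MET, CYS) and serine (SER). The names stand for 70 distinct symbols in H. pseudoburtonii and 69 in H. burtonii, of which 68 occurred in both. A few members carry such a name but are described as something other than a synthesis enzyme, namely ARG82, ARO10, LEU5, MET7 and 1 of the PRO2 genes in both species and MET30 in H. pseudoburtonii, and leaving them out moved no count of calls by over 1.5 times.

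Yeasts make amino acids from a few intermediates of central metabolism. Oxaloacetate gives aspartate and from it threonine and methionine, pyruvate gives valine and leucine, 2-oxoglutarate gives arginine, proline and, by the fungal aminoadipate route, lysine, and erythrose 4-phosphate with phosphoenolpyruvate gives the aromatic amino acids. In Saccharomyces cerevisiae many of these genes are activated together by the transcription factor Gcn4 when amino acids run short, and several pathways have a regulator of their own, such as Leu3 for leucine and Met4 with Met32 for sulfur. Methionine and cysteine synthesis begins with the reduction of sulfate, whose sulfite step needs the cofactor siroheme.

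Each yeast was a wild-type strain isolated from Nuruk, a Korean fermentation starter, KJS14 for H. pseudoburtonii and KJJ43 for H. burtonii. Cultures were started in YPD, a rich medium, at an OD600 of 0.6 and grown to 2.0, a first sample was taken (0 min), and YPD with 2 M NaCl was then added in equal volume, so that the cells were in 1 M NaCl at the harvests at 5, 15 and 30 min. RNA-seq gave 2 libraries for each species and time, 16 in all. Salt and fresh medium arrived together and every later harvest carried both, so their effects cannot be told apart, and all cells had amino acids from the medium. Nothing given here says whether the 2 libraries of a group came from separate cultures, so p-values measure the spread between these libraries, which may be technical. Each species was 1 strain in a library series of its own, and strain, species and series cannot be told apart.

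Levels were deposited as FPKM, fragments scaled by gene length and by the mapped fragments of the library, which are shares of the RNA in a library. Depth is not given as counts. From the steps between low values, the 0 min libraries of H. pseudoburtonii were the deepest of that species (relative depth 0.974 and 1, against 0.267 to 0.505 at the later times), whereas those of H. burtonii were the shallowest of theirs (0.541 and 0.464, against 0.599 to 1). The part of this in any change from 0 min was not tested. Log2 FPKM of the 2 libraries of a group correlated over genes with r of 0.924 to 0.979 in H. pseudoburtonii and 0.957 to 0.99 in H. burtonii. In such bulk samples fewer cells with a transcript and less of it per cell cannot be told apart.

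A gene was tested where at least 2 of the 8 libraries of its species reached 1 FPKM. All 76 members of H. pseudoburtonii passed and 80 of 81 in H. burtonii, the exception being an ARO3 copy (TBIG001210) at 0 to 0.802 FPKM. Log2 changes are of FPKM + 1, which understates the change of low genes, and stand with their SE from limma. A gene is called, which here means risen or fallen, at a p under 0.05 after Benjamini-Hochberg adjustment over all tested genes of its species. Each call was recomputed in the 8 fits that leave out 1 library (16 for differences between the species) and after rescaling the libraries by median ratios. Unless another comparison is named, calls of a single gene are against 0 min. Where the text prints the change or difference of a call, it marks the call as kept in some of those fits, or as lost on rescaling, and a call printed without such a mark held in all of them.

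Members were among the more abundant transcripts before salt. Their median level at 0 min was 103 FPKM in H. pseudoburtonii, against 38.0 for all its genes, and 73.9 FPKM in H. burtonii, against 27.2 for all its genes. Added up, members measured 12366 and 12480 FPKM at 0 min, 14641 and 14446 at 5 min, 13192 and 14688 at 15 min and 14964 and 14975 at 30 min in H. pseudoburtonii. The sums in H. burtonii were 12878 and 12615 FPKM at 0 min, 9820 and 10409 at 5 min, 11473 and 11424 at 15 min and 19236 and 18190 at 30 min. In H. pseudoburtonii every later sum was above both 0 min sums, whereas in H. burtonii the sums lay below them at 5 and 15 min and above them at 30 min. FPKM of all genes added up to 1259069 to 1467425 in the libraries of H. pseudoburtonii and to 1367737 to 1498017 in those of H. burtonii. Member sums as shares of these totals were not computed.

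At 5 min, the called members were all higher in H. pseudoburtonii and, but for 1, lower in H. burtonii. In H. pseudoburtonii 7 of 76 members had risen and none had fallen, where 4.17% of all tested genes rose and 4.55% fell. In H. burtonii 1 of 80 members had risen and 21 had fallen, where 11.2% of all genes rose and 11.1% fell. The median change was 0.18 over members and 0.12 over all genes in H. pseudoburtonii, and -0.32 over members and 0.07 over all genes in H. burtonii. Both counts rested on few libraries: the 7 of H. pseudoburtonii became 1 without either 0 min library, 3 without either 5 min library and 4 without either 30 min library. The 21 of H. burtonii became 13 without 0 min replicate 1, 4 without 5 min replicate 1 and 3 without 5 min replicate 2, and its single rise became 2 and 7 without 0 min replicate 1 and 2 and 0 without either 5 min library.

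At 15 min, 16 members had risen and 4 had fallen in H. pseudoburtonii (all genes: 9.90% and 7.80%), and 7 had risen and 14 had fallen in H. burtonii (all genes: 22.8% and 6.93%). The median change over members was 0.05 in H. pseudoburtonii and 0.03 in H. burtonii, beside 0.10 and 0.39 over all genes. Relative to the median of all genes, members of H. burtonii thus stood at -0.37. After rescaling by median ratios the H. burtonii split became 2 risen and 23 fallen, where 11.6% and 12.3% of all its genes were called. The 16 and 4 calls of H. pseudoburtonii became 5 and 1 without 0 min replicate 1 and 8 and 0 without 0 min replicate 2, and the 4 became 2 without 15 min replicate 1. In H. burtonii the 7 rises became 2 and 12 without 0 min replicate 1 and 2, 4 without either 5 min library and 2 without 15 min replicate 2. Its 14 falls became 7 without 0 min replicate 1, 8 and 9 without 5 min replicate 1 and 2 and 9 without 15 min replicate 2.

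At 30 min, 24 members had risen and 4 had fallen in H. pseudoburtonii (all genes: 25.8% and 9.69%), and 38 had risen and 5 had fallen in H. burtonii (all genes: 37.0% and 11.1%). Members had a median change of 0.26 in H. pseudoburtonii and 0.69 in H. burtonii, beside 0.39 and 0.56 over all genes. Rescaling, which takes out the shift shared by all genes, gave 14 risen and 19 fallen in H. pseudoburtonii (all genes: 15.2% and 17.1%) and 20 risen and 10 fallen in H. burtonii (all genes: 16.9% and 18.1%). The 24 rises of H. pseudoburtonii became 13 and 12 without 0 min replicate 1 and 2 and 14 and 13 without 30 min replicate 1 and 2, and its 4 falls became 2 without 0 min replicate 2 or 30 min replicate 1. The 38 rises of H. burtonii stayed between 28 and 40, and its 5 falls became 3 without 0 min replicate 2 or either 30 min library.

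Set against 5 min, 30 min levels had risen for 13 members and fallen for 9 in H. pseudoburtonii (all genes: 22.6% and 9.93%), and had risen for 52 and fallen for 5 in H. burtonii (all genes: 35.6% and 11.9%). After rescaling these were 8 and 19 in H. pseudoburtonii (all genes: 15.6% and 15.4%) and 36 and 9 in H. burtonii (all genes: 16.9% and 18.5%). In H. burtonii 20 of the 21 members lower at 5 min than at 0 min were higher at 30 min than at 5 min. Of the 21, 13 were higher at 30 min than at 0 min. The same shares of all genes lower at 5 min were not computed. The comparisons of 5 and 30 min share libraries with each other. Low values in the 5 min libraries favour both a fall at 5 min and a rise from 5 to 30 min. Of the 21 falls, 3 held in every fit that leaves out 1 library. LEU4 TBIG004760 alone was lower than at 0 min at each of the 3 times. In H. pseudoburtonii no member fell at 5 min, and all 7 that rose then were also higher at 30 min. There 46 of 76 members were called at none of the 3 times, against 25 of 80 in H. burtonii. How many of all genes were called at none of them was not computed, so this contrast cannot be ascribed to members. Rises among all genes were more frequent in H. burtonii at each time. Falls among all genes were more frequent there at 5 and 30 min but not at 15 min. In H. pseudoburtonii the 13 rises became 7 without 5 min replicate 2 or 30 min replicate 1 and 6 without 30 min replicate 2, and the 9 falls became 5 without either 0 min library and 2 without either 30 min library. The 52 rises of H. burtonii stayed between 40 and 54, and its 5 falls became 3 without either 5 min library.

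**Figure D1:**
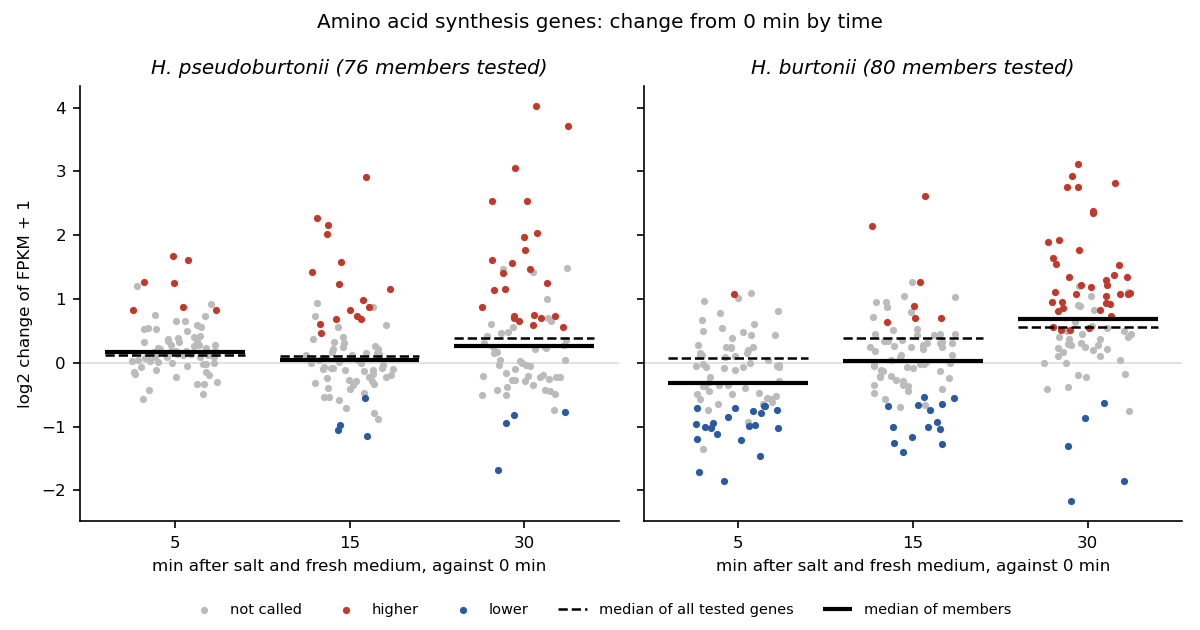
Log2 change of FPKM + 1 from 0 min (vertical axis) for each tested member at 5, 15 and 30 min, in H. pseudoburtonii (left) and H. burtonii (right), with called members in red (higher) and blue (lower), a solid line at the median of members and a dashed line at the median of all tested genes. The member median of H. burtonii lay below that of all genes at 5 and 15 min and above it at 30 min.

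**Figure D2:**
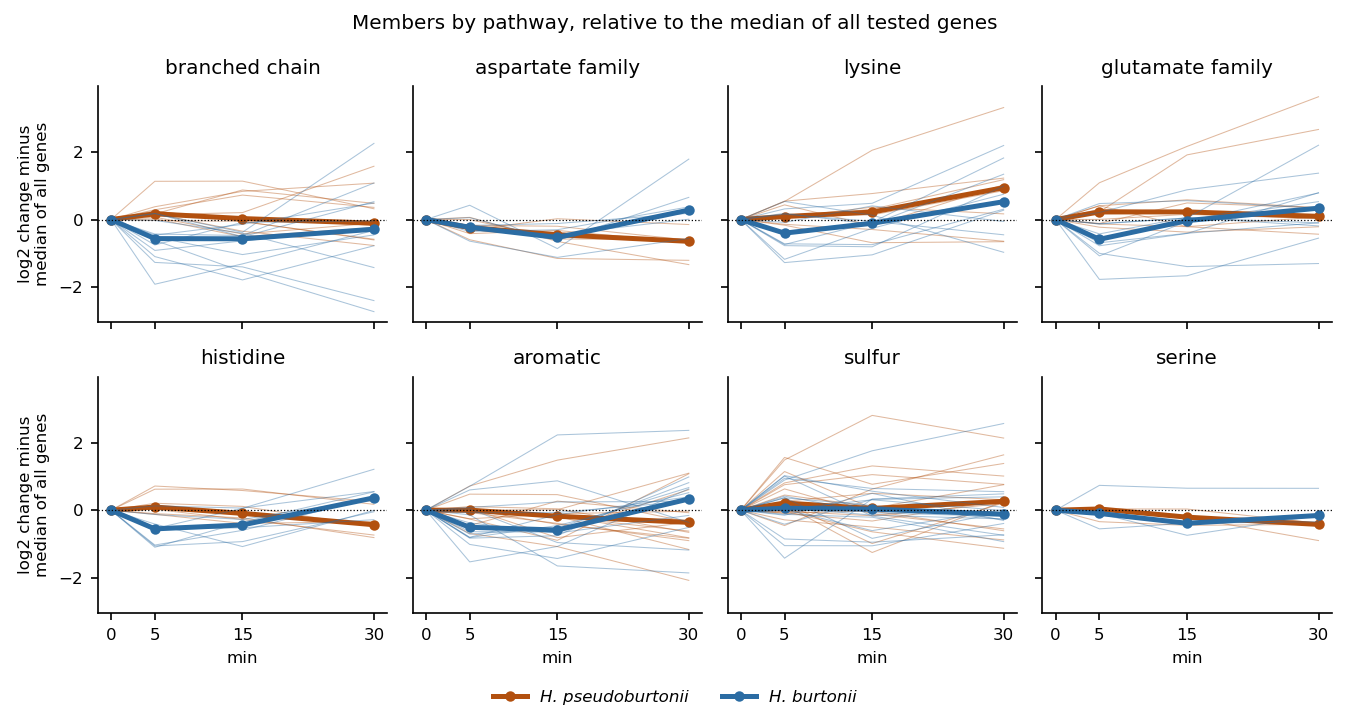
Log2 change from 0 min minus the median change of all tested genes (vertical axis) against time in min for the 8 pathways, with a thin line for each tested member and a thick line with points for the pathway median, H. pseudoburtonii in orange and H. burtonii in blue. Lysine has the highest pathway median at 30 min in both species, and the aspartate, histidine and aromatic medians end above 0 in H. burtonii and below 0 in H. pseudoburtonii.

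Calls of LEU members at 30 min were all higher in H. pseudoburtonii and all lower in H. burtonii. At that time 4 of the 5 LEU members had risen and none had fallen in H. pseudoburtonii (all genes: 25.8% and 9.69%), whereas none had risen and 3 of 5 had fallen in H. burtonii (all genes: 37.0% and 11.1%), and their median changes were 0.87 and -0.87. One of the called members in each species is LEU5, a carrier, and LEU2 and LEU4 TBIG002574 were not called at 30 min in H. burtonii. After rescaling these counts were 2 risen of 5 in H. pseudoburtonii (all genes: 15.2%) and again 3 fallen of 5 in H. burtonii (all genes: 18.1%). LEU1 is the isomerase that follows the first leucine step. LEU1 in H. pseudoburtonii measured 97.5 and 99.6 FPKM at 0 min, 140.4 and 103 at 5 min, 185 and 207 at 15 min and 184 and 178 at 30 min. LEU1 rose at 15 min (log2 change 0.98 ± 0.19, adjusted p = 0.0139, kept in 6 of 8 fits) and at 30 min (log2 change 0.87 ± 0.19, adjusted p = 0.0114, kept in 4 of 8 fits, lost on rescaling), and its libraries lay above both 0 min libraries at 5, 15 and 30 min. In H. burtonii, LEU1 had 136 and 105 FPKM at 0 min, 80.0 and 82.8 at 5 min, 56.6 and 49.5 at 15 min and 24.6 and 26.7 at 30 min. The LEU1 libraries lay below both 0 min libraries at 5, 15 and 30 min, and the gene fell at 15 min (log2 change -1.16 ± 0.20, adjusted p = 0.00539) and at 30 min (log2 change -2.17 ± 0.20, adjusted p = 0.000159). The difference between the species (the H. pseudoburtonii change minus the H. burtonii one) was 2.14 ± 0.28 (adjusted p = 0.000357) at 15 min and 3.04 ± 0.28 (adjusted p = 1.31e-05) at 30 min, the largest difference in favour of H. pseudoburtonii among the 62 tested member pairs at 30 min.

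LEU4 encodes 2-isopropylmalate synthase, the committed step of leucine synthesis, and each table holds 2 copies. LEU4 TBIG001880 in H. pseudoburtonii measured 42.1 and 44.3 FPKM at 0 min, 59.6 and 45.2 at 5 min, 55.0 and 52.6 at 15 min and 186 and 159 at 30 min. LEU4 TBIG001880 rose at 30 min (log2 change 1.97 ± 0.21, adjusted p = 0.000651), and its libraries lay above both 0 min libraries at 5, 15 and 30 min. In H. pseudoburtonii, LEU4 TBIG004514 had 97.5 and 84.7 FPKM at 0 min, 136 and 107 at 5 min, 153 and 172 at 15 min and 159 and 148 at 30 min. The LEU4 TBIG004514 libraries lay above both 0 min libraries at 5, 15 and 30 min, and the gene rose at 15 min (log2 change 0.83 ± 0.19, adjusted p = 0.0231, kept in 5 of 8 fits) and at 30 min (log2 change 0.75 ± 0.19, adjusted p = 0.0186, kept in 4 of 8 fits, lost on rescaling). In H. burtonii both copies started high. LEU4 TBIG002574 in H. burtonii measured 536 and 577 FPKM at 0 min, 138 and 172 at 5 min, 317 and 271 at 15 min and 663 and 645 at 30 min. LEU4 TBIG002574 fell at 5 min (log2 change -1.85 ± 0.17, adjusted p = 0.000836) and at 15 min (log2 change -0.92 ± 0.17, adjusted p = 0.00773), and its libraries lay above both 0 min libraries at 30 min and lay below both at 5 and 15 min. In H. burtonii, LEU4 TBIG004760 had 153 and 144 FPKM at 0 min, 62.2 and 65.8 at 5 min, 61.6 and 86.5 at 15 min and 50.3 and 32.6 at 30 min. The LEU4 TBIG004760 libraries lay below both 0 min libraries at 5, 15 and 30 min, and the gene fell at 5 min (log2 change -1.20 ± 0.25, adjusted p = 0.017, kept in 6 of 8 fits) at 15 min (log2 change -1.01 ± 0.25, adjusted p = 0.0224, kept in 6 of 8 fits) and at 30 min (log2 change -1.85 ± 0.25, adjusted p = 0.00103). At 30 min the first of the H. burtonii copies was not called, and the second was at its lowest. Which copy of one species answers to which of the other is not given, so no difference between the species was tested for LEU4.

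LEU2, the dehydrogenase after LEU1, had 1 call against 0 min, at 5 min in H. burtonii. LEU2 in H. pseudoburtonii measured 242 and 265 FPKM at 0 min, 301 and 343 at 5 min, 249 and 309.8 at 15 min and 293 and 299 at 30 min. The LEU2 libraries lay above both 0 min libraries at 5 and 30 min and overlapped them at 15 min, and none of the changes was called. In H. burtonii, LEU2 had 80.6 and 66.7 FPKM at 0 min, 35.4 and 46.0 at 5 min, 70.3 and 54.4 at 15 min and 88.3 and 93.6 at 30 min. The LEU2 libraries lay above both 0 min libraries at 30 min, lay below both at 5 min and overlapped them at 15 min, and the gene fell at 5 min (log2 change -0.85 ± 0.22, adjusted p = 0.0314, kept in 3 of 8 fits). There it was higher at 30 than at 5 min (log2 change 1.15 ± 0.22, adjusted p = 0.00414, lost on rescaling). Its difference between the species at 5 min was 1.19 ± 0.28 (adjusted p = 0.0158, kept in 14 of 16 fits). LEU5 carries the stem but encodes a mitochondrial carrier rather than a leucine enzyme. LEU5 in H. pseudoburtonii measured 15.2 and 17.8 FPKM at 0 min, 28.5 and 19.5 at 5 min, 33.0 and 31.8 at 15 min and 55.0 and 40.6 at 30 min. LEU5 rose at 30 min (log2 change 1.47 ± 0.29, adjusted p = 0.00759, kept in 6 of 8 fits), and its libraries lay above both 0 min libraries at 5, 15 and 30 min. In H. burtonii, LEU5 had 36.3 and 53.5 FPKM at 0 min, 45.2 and 45.8 at 5 min, 39.0 and 48.7 at 15 min and 21.7 and 26.0 at 30 min. The LEU5 libraries lay below both 0 min libraries at 30 min and overlapped them at 5 and 15 min, and the gene fell at 30 min (log2 change -0.87 ± 0.24, adjusted p = 0.0213, kept in 5 of 8 fits). Its difference between the species at 30 min was 2.34 ± 0.37 (adjusted p = 0.000503).

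The ILV genes make the precursors of isoleucine, valine and leucine. At 30 min 1 of 5 had risen in H. pseudoburtonii (all genes: 25.8%) and 3 of 5 in H. burtonii (all genes: 37.0%). None had fallen in either (all genes: 9.69% and 11.1%). After rescaling none had risen and 2 had fallen in H. pseudoburtonii (all genes: 15.2% and 17.1%). In H. burtonii 1 had then risen and 1 had fallen (all genes: 16.9% and 18.1%). ILV5, the ketol-acid reductoisomerase, was the one ILV member that rose in H. pseudoburtonii. ILV5 in H. pseudoburtonii measured 510.1 and 469 FPKM at 0 min, 1098 and 1235 at 5 min, 1169 and 1147 at 15 min and 811 and 792 at 30 min. ILV5 rose at 5 min (log2 change 1.25 ± 0.13, adjusted p = 0.00197) at 15 min (log2 change 1.24 ± 0.13, adjusted p = 0.00134) and at 30 min (log2 change 0.71 ± 0.13, adjusted p = 0.00625, kept in 7 of 8 fits, lost on rescaling), and its libraries lay above both 0 min libraries at 5, 15 and 30 min. In H. burtonii, ILV5 had 503 and 399 FPKM at 0 min, 506 and 561 at 5 min, 402 and 424 at 15 min and 1101 and 821 at 30 min. The ILV5 libraries lay above both 0 min libraries at 5 and 30 min and overlapped them at 15 min, and the gene rose at 30 min (log2 change 1.08 ± 0.20, adjusted p = 0.00357, lost on rescaling). ILV2 and ILV6 encode the catalytic and the regulatory subunit of acetolactate synthase. ILV2 in H. pseudoburtonii measured 106 and 103 FPKM at 0 min, 129 and 110.5 at 5 min, 82.6 and 84.1 at 15 min and 126 and 129 at 30 min. The ILV2 libraries lay above both 0 min libraries at 5 and 30 min and lay below both at 15 min, and none of the changes was called. In H. burtonii, ILV2 had 159 and 161 FPKM at 0 min, 82.8 and 73.6 at 5 min, 66.1 and 54.7 at 15 min and 157 and 119.8 at 30 min. The ILV2 libraries lay below both 0 min libraries at 5, 15 and 30 min, and the gene fell at 5 min (log2 change -1.03 ± 0.20, adjusted p = 0.0129, kept in 6 of 8 fits) and at 15 min (log2 change -1.40 ± 0.20, adjusted p = 0.00272). The small subunit gave less distinct values. ILV6 in H. pseudoburtonii measured 446 and 411 FPKM at 0 min, 581 and 529.9 at 5 min, 472 and 412 at 15 min and 360.0 and 389.8 at 30 min. The ILV6 libraries lay above both 0 min libraries at 5 min, lay below both at 30 min and overlapped them at 15 min, and none of the changes was called. In H. burtonii, ILV6 had 314 and 302 FPKM at 0 min, 229.8 and 222 at 5 min, 181 and 213 at 15 min and 344 and 317 at 30 min. The ILV6 libraries lay above both 0 min libraries at 30 min and lay below both at 5 and 15 min, and the gene fell at 15 min (log2 change -0.65 ± 0.16, adjusted p = 0.0195, kept in 6 of 8 fits).

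ILV1, the threonine dehydratase that opens the isoleucine branch, and ILV3, the dihydroxy-acid dehydratase, rose in H. burtonii at 30 min and were not called in H. pseudoburtonii. ILV1 in H. pseudoburtonii measured 185 and 169 FPKM at 0 min, 222 and 211 at 5 min, 153 and 147 at 15 min and 131 and 141 at 30 min. The ILV1 libraries lay above both 0 min libraries at 5 min and lay below both at 15 and 30 min, and none of the changes was called. In H. burtonii, ILV1 had 21.7 and 38.3 FPKM at 0 min, 19.6 and 23.9 at 5 min, 27.3 and 43.4 at 15 min and 72.6 and 50.4 at 30 min. The ILV1 libraries lay above both 0 min libraries at 30 min and overlapped them at 5 and 15 min, and the gene rose at 30 min (log2 change 1.04 ± 0.35, adjusted p = 0.0393, kept in 3 of 8 fits, lost on rescaling). For ILV3 the 30 min libraries of the 2 species parted further. ILV3 in H. pseudoburtonii measured 108 and 96.6 FPKM at 0 min, 107 and 111 at 5 min, 112 and 100.2 at 15 min and 105 and 74.0 at 30 min. No ILV3 change was called, and the later libraries overlapped those of 0 min. In H. burtonii, ILV3 had 128 and 93.6 FPKM at 0 min, 88.3 and 82.4 at 5 min, 121 and 88.3 at 15 min and 352 and 335 at 30 min. The ILV3 libraries lay above both 0 min libraries at 30 min, lay below both at 5 min and overlapped them at 15 min, and the gene rose at 30 min (log2 change 1.64 ± 0.22, adjusted p = 0.000948). The ILV3 difference at 30 min was -1.85 ± 0.32 (adjusted p = 0.000832). BAT2, the cytosolic aminotransferase of the last step, is 1 gene in H. pseudoburtonii and 2 neighbours in H. burtonii. The H. pseudoburtonii gene was not called at any time. BAT2 TBIG000558 in H. burtonii measured 17.4 and 14.7 FPKM at 0 min, 15.8 and 23.2 at 5 min, 20.1 and 12.9 at 15 min and 114 and 122 at 30 min. BAT2 TBIG000558 rose at 30 min (log2 change 2.81 ± 0.28, adjusted p = 0.000251), and its libraries lay above both 0 min libraries at 30 min and overlapped them at 5 and 15 min. BAT2 TBIG000557 fell at 5 min (log2 change -0.68 ± 0.18, adjusted p = 0.0317, kept in 3 of 8 fits) and rose at 30 min (log2 change 0.51 ± 0.18, adjusted p = 0.0458, kept in 3 of 8 fits, lost on rescaling).

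In the aspartate family none of 6 members had risen and 2 had fallen at 30 min in H. pseudoburtonii (all genes: 25.8% and 9.69%), and 5 of 6 had risen and none had fallen in H. burtonii (all genes: 37.0% and 11.1%). After rescaling none had risen and 3 had fallen in H. pseudoburtonii (all genes: 15.2% and 17.1%). In H. burtonii 2 had then risen and none had fallen (all genes: 16.9% and 18.1%). HOM3 is aspartokinase, the entry to threonine and methionine synthesis. In H. pseudoburtonii, HOM3 had 102 and 95.5 FPKM at 0 min, 109.6 and 104 at 5 min, 57.4 and 87.3 at 15 min and 83.5 and 88.0 at 30 min. No HOM3 change was called, although its libraries lay above both 0 min libraries at 5 min and lay below both at 15 and 30 min. HOM3 in H. burtonii measured 14.4 and 12.7 FPKM at 0 min, 18.9 and 20.0 at 5 min, 10.4 and 8.68 at 15 min and 80.2 and 66.1 at 30 min. HOM3 rose at 30 min (log2 change 2.35 ± 0.22, adjusted p = 0.000187), and its libraries lay above both 0 min libraries at 5 and 30 min and lay below both at 15 min. The difference at 30 min was -2.54 ± 0.31 (adjusted p = 9.20e-05). HOM2, aspartate-semialdehyde dehydrogenase, was called in opposite directions. In H. pseudoburtonii, HOM2 had 335 and 409 FPKM at 0 min, 247 and 284 at 5 min, 178 and 179 at 15 min and 202 and 217 at 30 min. The HOM2 libraries lay below both 0 min libraries at 5, 15 and 30 min, and the gene fell at 15 min (log2 change -1.05 ± 0.17, adjusted p = 0.00611, kept in 7 of 8 fits) and at 30 min (log2 change -0.82 ± 0.17, adjusted p = 0.00814, kept in 6 of 8 fits). HOM2 in H. burtonii measured 661 and 719.5 FPKM at 0 min, 577 and 610.3 at 5 min, 672 and 654 at 15 min and 1031 and 1009.9 at 30 min. HOM2 rose at 30 min (log2 change 0.56 ± 0.14, adjusted p = 0.0136, kept in 5 of 8 fits, lost on rescaling), and its libraries lay above both 0 min libraries at 30 min, lay below both at 5 min and overlapped them at 15 min. The difference at 30 min was -1.38 ± 0.22 (adjusted p = 0.000476).

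ASN1, asparagine synthetase, was likewise called in opposite directions. In H. pseudoburtonii, ASN1 had 435 and 428 FPKM at 0 min, 446 and 538 at 5 min, 303 and 289 at 15 min and 220.0 and 228 at 30 min. The ASN1 libraries lay above both 0 min libraries at 5 min and lay below both at 15 and 30 min, and the gene fell at 15 min (log2 change -0.55 ± 0.15, adjusted p = 0.0437, kept in 2 of 8 fits) and at 30 min (log2 change -0.94 ± 0.15, adjusted p = 0.0031). ASN1 in H. burtonii measured 361 and 325 FPKM at 0 min, 373 and 373 at 5 min, 293 and 292 at 15 min and 852 and 741 at 30 min. ASN1 rose at 30 min (log2 change 1.21 ± 0.15, adjusted p = 0.000682), and its libraries lay above both 0 min libraries at 5 and 30 min and lay below both at 15 min. The 30 min libraries of H. pseudoburtonii were the lowest of its course and those of H. burtonii the highest of its own, with a difference of -2.16 ± 0.21 (adjusted p = 2.53e-05). HOM6, homoserine dehydrogenase, was called in H. burtonii alone. In H. pseudoburtonii, HOM6 had 416 and 425 FPKM at 0 min, 377 and 434 at 5 min, 332 and 467 at 15 min and 354 and 369 at 30 min. No HOM6 change was called, although its libraries lay below both 0 min libraries at 30 min and overlapped them at 5 and 15 min. HOM6 in H. burtonii measured 234 and 223 FPKM at 0 min, 204 and 220.5 at 5 min, 268 and 283 at 15 min and 369.8 and 394 at 30 min. HOM6 rose at 30 min (log2 change 0.74 ± 0.15, adjusted p = 0.00525, lost on rescaling), and its libraries lay above both 0 min libraries at 15 and 30 min and lay below both at 5 min. THR4, threonine synthase, completes the branch. In H. pseudoburtonii, THR4 had 222 and 246 FPKM at 0 min, 199.7 and 211 at 5 min, 202 and 323 at 15 min and 286 and 268 at 30 min. No THR4 change was called, although its libraries lay above both 0 min libraries at 30 min, lay below both at 5 min and overlapped them at 15 min. THR4 in H. burtonii measured 123 and 101 FPKM at 0 min, 95.4 and 88.0 at 5 min, 127 and 111 at 15 min and 228 and 201 at 30 min. THR4 rose at 30 min (log2 change 0.93 ± 0.18, adjusted p = 0.00458, lost on rescaling), and its libraries lay above both 0 min libraries at 30 min, lay below both at 5 min and overlapped them at 15 min. THR1, homoserine kinase, was not called in H. pseudoburtonii and fell in H. burtonii at 15 min (log2 change -0.73 ± 0.21, adjusted p = 0.0338, kept in 2 of 8 fits).

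**Figure D3:**
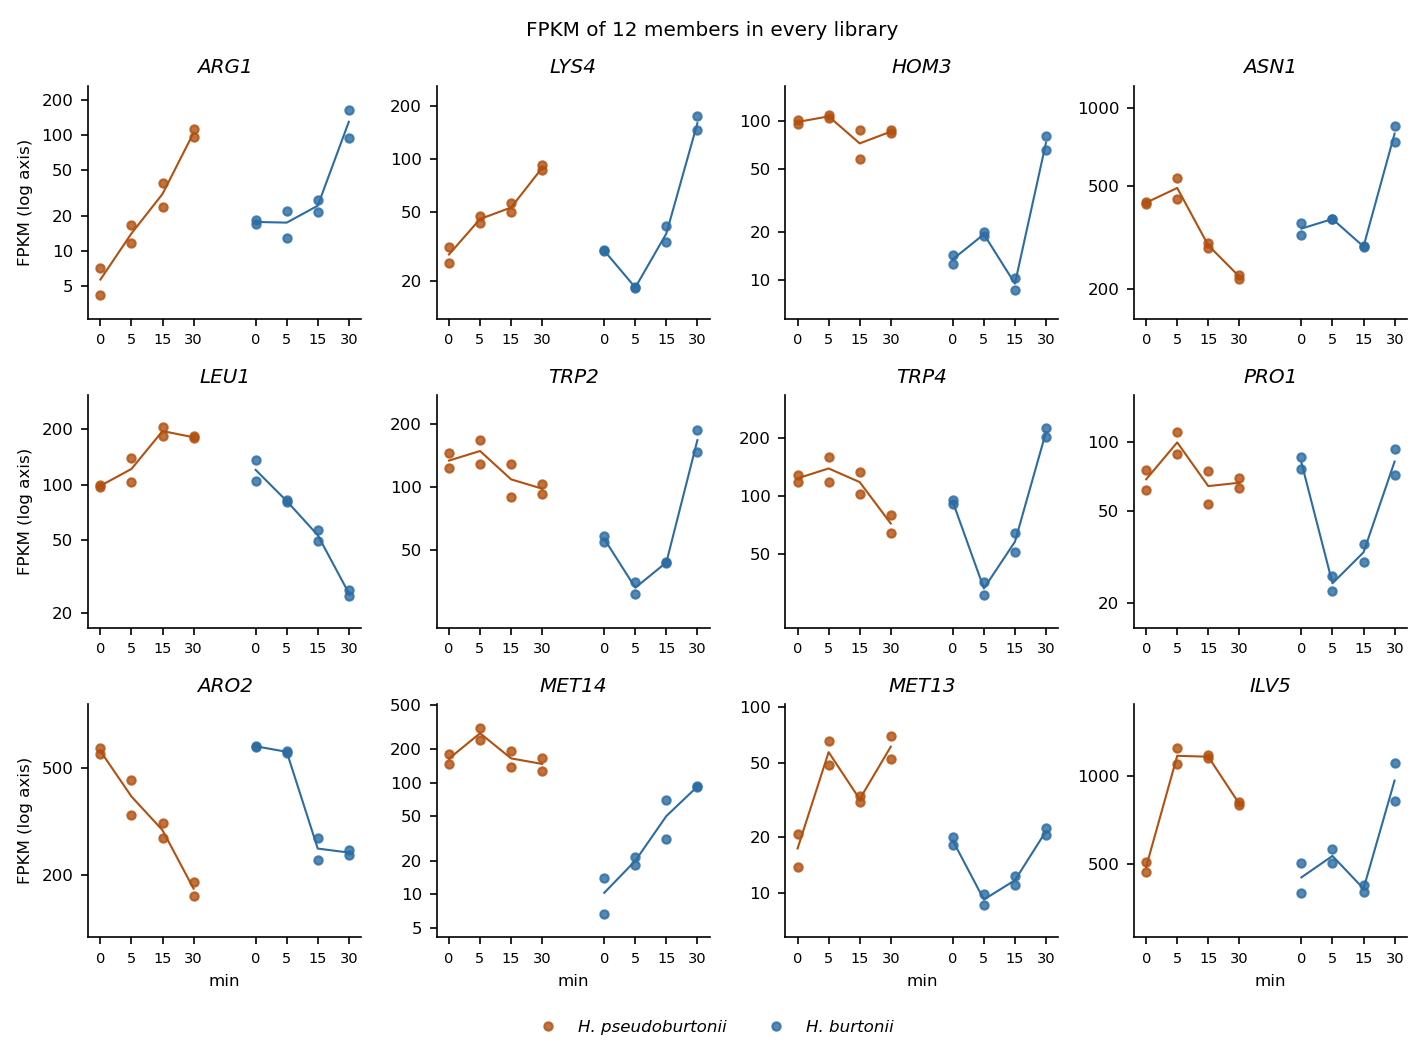
FPKM (log axis) of 12 members in each library at 0, 5, 15 and 30 min, H. pseudoburtonii at the left of each panel in orange and H. burtonii at the right in blue, with a point for each library and a line through the means of 2 libraries. ARG1 and LYS4 end above their start in both species and ARO2 ends below it in both, while LEU1, ASN1 and TRP4 end on opposite sides.

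At 30 min 5 of 8 LYS members had risen in H. pseudoburtonii (all genes: 25.8%) and 7 of 10 in H. burtonii (all genes: 37.0%), with none fallen, and the median changes of 1.33 and 1.08 were 0.94 and 0.53 above those of all genes. Rescaling left 4 risen and 2 fallen in H. pseudoburtonii (all genes: 15.2% and 17.1%). It left 5 risen and none fallen in H. burtonii (all genes: 16.9% and 18.1%). Several are named LYS1: 2 copies in each species encode homocitrate synthase, the first step, and 1 encodes the saccharopine dehydrogenase of the last step. In H. pseudoburtonii, LYS1 TBIG002461, a homocitrate synthase, had 21.6 and 26.4 FPKM at 0 min, 34.5 and 42.2 at 5 min, 99.0 and 123 at 15 min and 314 and 335 at 30 min. The LYS1 TBIG002461 libraries lay above both 0 min libraries at 5, 15 and 30 min, and the gene rose at 15 min (log2 change 2.16 ± 0.21, adjusted p = 0.00102) and at 30 min (log2 change 3.71 ± 0.21, adjusted p = 5.87e-05). LYS1 TBIG005945, a homocitrate synthase, in H. burtonii measured 80.5 and 125 FPKM at 0 min, 111 and 155 at 5 min, 153 and 223 at 15 min and 733 and 632 at 30 min. LYS1 TBIG005945 rose at 30 min (log2 change 2.75 ± 0.29, adjusted p = 0.00031), and its libraries lay above both 0 min libraries at 15 and 30 min and overlapped them at 5 min. The second homocitrate synthase was not called in either species. In H. pseudoburtonii that gene, TBIG004078, had log2 changes of -0.25 to -0.02 over the 3 times, and in H. burtonii TBIG003088 had 0.10 to 0.34.

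LYS4, homoaconitase, takes homocitrate on to homoisocitrate. In H. pseudoburtonii, LYS4 had 25.5 and 31.2 FPKM at 0 min, 47.4 and 43.2 at 5 min, 55.9 and 49.6 at 15 min and 86.0 and 91.7 at 30 min. The LYS4 libraries lay above both 0 min libraries at 5, 15 and 30 min, and the gene rose at 15 min (log2 change 0.87 ± 0.21, adjusted p = 0.0286, kept in 3 of 8 fits) and at 30 min (log2 change 1.62 ± 0.21, adjusted p = 0.00151). LYS4 in H. burtonii measured 29.7 and 30.0 FPKM at 0 min, 18.2 and 18.5 at 5 min, 41.4 and 33.5 at 15 min and 145 and 175 at 30 min. LYS4 fell at 5 min (log2 change -0.67 ± 0.20, adjusted p = 0.0462, kept in 2 of 8 fits) and rose at 30 min (log2 change 2.38 ± 0.20, adjusted p = 0.000104), and its libraries lay above both 0 min libraries at 15 and 30 min and lay below both at 5 min. It rose at 30 min in both species, and the gap between the changes was -0.76 ± 0.27 (adjusted p = 0.0456, kept in 6 of 16 fits, lost on rescaling). LYS12, homoisocitrate dehydrogenase, was called in H. burtonii alone. In H. pseudoburtonii, LYS12 had 189 and 208 FPKM at 0 min, 214 and 171 at 5 min, 106 and 164 at 15 min and 179 and 152 at 30 min. No LYS12 change was called, although its libraries lay below both 0 min libraries at 15 and 30 min and overlapped them at 5 min. LYS12 in H. burtonii measured 181 and 161 FPKM at 0 min, 76.4 and 70.6 at 5 min, 113 and 103 at 15 min and 318 and 292 at 30 min. LYS12 fell at 5 min (log2 change -1.21 ± 0.16, adjusted p = 0.00335, kept in 7 of 8 fits) and at 15 min (log2 change -0.66 ± 0.16, adjusted p = 0.0212, kept in 5 of 8 fits) and then rose at 30 min (log2 change 0.83 ± 0.16, adjusted p = 0.00471, lost on rescaling), and its libraries lay above both 0 min libraries at 30 min and lay below both at 5 and 15 min. LYS2, the aminoadipate reductase, is 1 gene in H. pseudoburtonii and 2 adjoining genes in H. burtonii. In H. pseudoburtonii, LYS2 had 57.8 and 71.2 FPKM at 0 min, 84.1 and 62.2 at 5 min, 79.5 and 92.0 at 15 min and 204 and 182 at 30 min. The LYS2 libraries lay above both 0 min libraries at 15 and 30 min and overlapped them at 5 min, and the gene rose at 30 min (log2 change 1.57 ± 0.22, adjusted p = 0.0019). In H. burtonii TBIG001060 fell at 5 min (log2 change -1.11 ± 0.26, adjusted p = 0.0223, kept in 5 of 8 fits) and rose at 30 min (log2 change 1.30 ± 0.26, adjusted p = 0.0048), and TBIG001061 rose at 30 min (log2 change 0.86 ± 0.22, adjusted p = 0.0141, kept in 6 of 8 fits, lost on rescaling).

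LYS9 and the LYS1 dehydrogenase make and cleave saccharopine at the end of the route. LYS9 in H. pseudoburtonii measured 461 and 469 FPKM at 0 min, 518 and 536 at 5 min, 666 and 624 at 15 min and 707 and 665 at 30 min. LYS9 rose at 15 min (log2 change 0.47 ± 0.13, adjusted p = 0.0446, kept in 2 of 8 fits, lost on rescaling) and at 30 min (log2 change 0.56 ± 0.13, adjusted p = 0.0141, kept in 4 of 8 fits, lost on rescaling), and its libraries lay above both 0 min libraries at 5, 15 and 30 min. Of the 2 LYS9 genes of H. burtonii, one rose and the other was not called. In H. burtonii, LYS9 TBIG001934 had 68.4 and 107 FPKM at 0 min, 103 and 101 at 5 min, 88.8 and 117 at 15 min and 393 and 264 at 30 min. The LYS9 TBIG001934 libraries lay above both 0 min libraries at 30 min and overlapped them at 5 and 15 min, and the gene rose at 30 min (log2 change 1.90 ± 0.28, adjusted p = 0.00146). LYS9 TBIG001607 in H. burtonii measured 1.64 and 1.56 FPKM at 0 min, 3.94 and 2.16 at 5 min, 2.38 and 3.10 at 15 min and 0.636 and 1.32 at 30 min. The LYS9 TBIG001607 libraries lay above both 0 min libraries at 5 and 15 min and lay below both at 30 min, and none of the changes was called. The dehydrogenase rose at the end in both species. In H. pseudoburtonii LYS1 TBIG003019 rose at 30 min (log2 change 1.25 ± 0.27, adjusted p = 0.011, kept in 5 of 8 fits). In H. burtonii, LYS1 TBIG003455 had 42.0 and 42.7 FPKM at 0 min, 24.9 and 26.4 at 5 min, 30.5 and 32.4 at 15 min and 122 and 129 at 30 min. The LYS1 TBIG003455 libraries lay above both 0 min libraries at 30 min and lay below both at 5 and 15 min, and the gene fell at 5 min (log2 change -0.70 ± 0.17, adjusted p = 0.0265, kept in 2 of 8 fits) and rose at 30 min (log2 change 1.55 ± 0.17, adjusted p = 0.000405). LYS5, which activates the LYS2 enzyme, was not called in either species.

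The last 2 steps of arginine synthesis rose in both yeasts. ARG1, argininosuccinate synthase, had the largest 30 min change of any member of H. pseudoburtonii. ARG1 in H. pseudoburtonii measured 4.15 and 7.13 FPKM at 0 min, 11.7 and 16.6 at 5 min, 23.7 and 38.4 at 15 min and 113 and 97.1 at 30 min. ARG1 rose at 15 min (log2 change 2.27 ± 0.37, adjusted p = 0.00659, kept in 7 of 8 fits) and at 30 min (log2 change 4.03 ± 0.37, adjusted p = 0.00032), and its libraries lay above both 0 min libraries at 5, 15 and 30 min. In H. burtonii, ARG1 had 16.9 and 18.6 FPKM at 0 min, 13.0 and 22.1 at 5 min, 21.6 and 27.5 at 15 min and 166 and 95.0 at 30 min. The ARG1 libraries lay above both 0 min libraries at 15 and 30 min and overlapped them at 5 min, and the gene rose at 30 min (log2 change 2.76 ± 0.34, adjusted p = 0.000643). ARG4, argininosuccinate lyase, follows it. ARG4 in H. pseudoburtonii measured 13.4 and 13.5 FPKM at 0 min, 14.2 and 21.0 at 5 min, 44.2 and 74.9 at 15 min and 123 and 117 at 30 min. ARG4 rose at 15 min (log2 change 2.02 ± 0.31, adjusted p = 0.0059) and at 30 min (log2 change 3.06 ± 0.31, adjusted p = 0.000565), and its libraries lay above both 0 min libraries at 5, 15 and 30 min. In H. burtonii, ARG4 had 33.6 and 68.1 FPKM at 0 min, 58.1 and 58.4 at 5 min, 102 and 134 at 15 min and 201 and 170.2 at 30 min. The ARG4 libraries lay above both 0 min libraries at 15 and 30 min and overlapped them at 5 min, and the gene rose at 15 min (log2 change 1.27 ± 0.32, adjusted p = 0.0223, kept in 6 of 8 fits, lost on rescaling) and at 30 min (log2 change 1.93 ± 0.32, adjusted p = 0.00229). Both genes rose at 30 min in each species, and the changes of the 2 species were not called different at 30 min, with a difference of 1.27 ± 0.51 (adjusted p = 0.0705) for ARG1 and 1.13 ± 0.46 (adjusted p = 0.0762) for ARG4. Such a p does not show that the changes were equal.

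Of the early arginine steps in H. pseudoburtonii, ARG8, acetylornithine aminotransferase, and ARG2, the acetyltransferase that starts the route, were called at none of the 3 times. ARG8 is 2 adjoining genes in H. burtonii. ARG8 TBIG000768 in H. burtonii measured 50.2 and 52.6 FPKM at 0 min, 32.9 and 29.4 at 5 min, 52.9 and 48.5 at 15 min and 141 and 124 at 30 min. ARG8 TBIG000768 fell at 5 min (log2 change -0.71 ± 0.18, adjusted p = 0.0286, kept in 2 of 8 fits) and rose at 30 min (log2 change 1.35 ± 0.18, adjusted p = 0.000816), and its libraries lay above both 0 min libraries at 30 min, lay below both at 5 min and overlapped them at 15 min. The other, TBIG000769, moved with it: it fell at 5 min (log2 change -1.01 ± 0.23, adjusted p = 0.0207, kept in 6 of 8 fits) and rose at 30 min (log2 change 1.34 ± 0.23, adjusted p = 0.00247). Neither ARG2 gene of H. burtonii was called. ARG82, which fits the name rule but encodes an inositol polyphosphate kinase, rose in H. pseudoburtonii at 30 min (log2 change 0.74 ± 0.22, adjusted p = 0.036, kept in 4 of 8 fits, lost on rescaling).

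Proline synthesis runs from glutamate through PRO1, PRO2 and PRO3. PRO1, glutamate 5-kinase and the first step, had one of the deepest dips in H. burtonii. In H. pseudoburtonii, PRO1 had 75.7 and 62.1 FPKM at 0 min, 88.6 and 111 at 5 min, 74.8 and 54.0 at 15 min and 70.1 and 63.1 at 30 min. No PRO1 change was called, although its libraries lay above both 0 min libraries at 5 min and overlapped them at 15 and 30 min. PRO1 in H. burtonii measured 86.6 and 76.4 FPKM at 0 min, 22.5 and 26.2 at 5 min, 36.2 and 30.1 at 15 min and 71.6 and 92.9 at 30 min. PRO1 fell at 5 min (log2 change -1.70 ± 0.21, adjusted p = 0.00264) and at 15 min (log2 change -1.27 ± 0.21, adjusted p = 0.00522), and its libraries lay below both 0 min libraries at 5 and 15 min and overlapped them at 30 min. The difference in its change was 2.23 ± 0.32 (adjusted p = 0.00087) at 5 min and 1.17 ± 0.32 (adjusted p = 0.0243, kept in 12 of 16 fits) at 15 min. PRO2 is the next reductase. In H. pseudoburtonii, PRO2 TBIG000406 had 79.8 and 82.3 FPKM at 0 min, 73.1 and 87.8 at 5 min, 75.2 and 75.2 at 15 min and 123 and 102 at 30 min. No PRO2 TBIG000406 change was called, although its libraries lay above both 0 min libraries at 30 min, lay below both at 15 min and overlapped them at 5 min. PRO2 TBIG001517 in H. burtonii measured 132 and 232 FPKM at 0 min, 78.9 and 106 at 5 min, 71.3 and 106 at 15 min and 107 and 101 at 30 min. PRO2 TBIG001517 fell at 15 min (log2 change -1.00 ± 0.31, adjusted p = 0.045, kept in 1 of 8 fits), and its libraries lay below both 0 min libraries at 5, 15 and 30 min. A second gene named PRO2 in each table encodes a proteasome subunit and rose in H. burtonii at 30 min (log2 change 1.09 ± 0.26, adjusted p = 0.0111, kept in 7 of 8 fits, lost on rescaling). PRO3, pyrroline-5-carboxylate reductase, ends the route. In H. pseudoburtonii, PRO3 had 99.9 and 106 FPKM at 0 min, 144 and 153 at 5 min, 163 and 169.6 at 15 min and 165 and 180.5 at 30 min. The PRO3 libraries lay above both 0 min libraries at 5, 15 and 30 min, and the gene rose at 15 min (log2 change 0.69 ± 0.16, adjusted p = 0.0227, kept in 4 of 8 fits) and at 30 min (log2 change 0.74 ± 0.16, adjusted p = 0.00956, kept in 5 of 8 fits, lost on rescaling). PRO3 in H. burtonii measured 673 and 508 FPKM at 0 min, 451 and 462 at 5 min, 937 and 685 at 15 min and 675 and 844 at 30 min. The PRO3 libraries lay above both 0 min libraries at 15 and 30 min and lay below both at 5 min, and none of the changes was called.

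Of the 7 HIS members of H. pseudoburtonii 1 had risen at 5 min (all genes: 4.17%) and 1 at 30 min (all genes: 25.8%), and none had fallen. Of the 8 HIS members of H. burtonii 3 had fallen at 5 min (all genes: 11.1%) and 5 had risen at 30 min (all genes: 37.0%). After rescaling, the 30 min counts were none risen and 2 fallen in H. pseudoburtonii (all genes: 15.2% and 17.1%). They were 1 risen and none fallen in H. burtonii (all genes: 16.9% and 18.1%). HIS1, ATP phosphoribosyltransferase, is the first step. In H. pseudoburtonii, HIS1 had 304 and 314 FPKM at 0 min, 296 and 320.2 at 5 min, 213 and 301 at 15 min and 368 and 279 at 30 min. No HIS1 change was called, although its libraries lay below both 0 min libraries at 15 min and overlapped them at 5 and 30 min. HIS1 in H. burtonii measured 769 and 733 FPKM at 0 min, 362 and 394 at 5 min, 531 and 503 at 15 min and 1088 and 1052 at 30 min. HIS1 fell at 5 min (log2 change -0.99 ± 0.14, adjusted p = 0.00471, kept in 6 of 8 fits) and at 15 min (log2 change -0.54 ± 0.14, adjusted p = 0.0272, kept in 3 of 8 fits) and then rose at 30 min (log2 change 0.51 ± 0.14, adjusted p = 0.0209, kept in 4 of 8 fits, lost on rescaling), and its libraries lay above both 0 min libraries at 30 min and lay below both at 5 and 15 min. HIS7 makes the imidazole ring. In H. pseudoburtonii, HIS7 had 86.6 and 76.1 FPKM at 0 min, 100.1 and 88.6 at 5 min, 81.6 and 81.9 at 15 min and 78.6 and 79.5 at 30 min. No HIS7 change was called, although its libraries lay above both 0 min libraries at 5 min and overlapped them at 15 and 30 min. HIS7 in H. burtonii measured 83.1 and 64.7 FPKM at 0 min, 36.5 and 37.8 at 5 min, 68.0 and 59.2 at 15 min and 152 and 132 at 30 min. HIS7 fell at 5 min (log2 change -0.96 ± 0.20, adjusted p = 0.0154, kept in 5 of 8 fits) and rose at 30 min (log2 change 0.94 ± 0.20, adjusted p = 0.00635, kept in 7 of 8 fits, lost on rescaling), and its libraries lay above both 0 min libraries at 30 min, lay below both at 5 min and overlapped them at 15 min. HIS3, imidazoleglycerol-phosphate dehydratase, was called in opposite directions at 5 min. In H. pseudoburtonii, HIS3 had 155 and 166 FPKM at 0 min, 315 and 261 at 5 min, 259 and 259.5 at 15 min and 264 and 241 at 30 min. The HIS3 libraries lay above both 0 min libraries at 5, 15 and 30 min, and the gene rose at 5 min (log2 change 0.83 ± 0.16, adjusted p = 0.0222, kept in 5 of 8 fits) at 15 min (log2 change 0.69 ± 0.16, adjusted p = 0.024, kept in 5 of 8 fits) and at 30 min (log2 change 0.65 ± 0.16, adjusted p = 0.0167, kept in 4 of 8 fits, lost on rescaling). HIS3 in H. burtonii measured 96.9 and 77.6 FPKM at 0 min, 40.9 and 43.2 at 5 min, 109 and 72.4 at 15 min and 169 and 208 at 30 min. HIS3 fell at 5 min (log2 change -1.03 ± 0.24, adjusted p = 0.0237, kept in 5 of 8 fits) and rose at 30 min (log2 change 1.10 ± 0.24, adjusted p = 0.00785, kept in 7 of 8 fits, lost on rescaling), and its libraries lay above both 0 min libraries at 30 min, lay below both at 5 min and overlapped them at 15 min. The difference at 5 min was 1.86 ± 0.30 (adjusted p = 0.00182).

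HIS5, the aminotransferase near the end of the route, had the largest rise among HIS members. In H. pseudoburtonii, HIS5 had 113 and 134 FPKM at 0 min, 164 and 146 at 5 min, 158 and 130.3 at 15 min and 105 and 127 at 30 min. No HIS5 change was called, although its libraries lay above both 0 min libraries at 5 min and overlapped them at 15 and 30 min. HIS5 in H. burtonii measured 57.0 and 46.2 FPKM at 0 min, 34.2 and 39.3 at 5 min, 78.4 and 63.1 at 15 min and 176 and 178 at 30 min. HIS5 rose at 30 min (log2 change 1.77 ± 0.20, adjusted p = 0.000427), and its libraries lay above both 0 min libraries at 15 and 30 min and lay below both at 5 min. Its difference at 30 min was -1.86 ± 0.28 (adjusted p = 0.000394). HIS6 was called higher in each species, at 15 min in one and at 30 min in the other. Its difference between the species was called at no time (0.28 ± 0.31, adjusted p = 0.558, at 15 min and -0.54 ± 0.31, adjusted p = 0.193, at 30 min). In H. pseudoburtonii, HIS6 had 57.5 and 69.7 FPKM at 0 min, 117 and 96.6 at 5 min, 114 and 98.1 at 15 min and 91.1 and 97.3 at 30 min. The HIS6 libraries lay above both 0 min libraries at 5, 15 and 30 min, and the gene rose at 15 min (log2 change 0.73 ± 0.20, adjusted p = 0.0434, kept in 3 of 8 fits, lost on rescaling). In H. burtonii HIS6 rose at 30 min (log2 change 1.11 ± 0.25, adjusted p = 0.00862, kept in 7 of 8 fits, lost on rescaling). HIS4, a trifunctional enzyme, was not called against 0 min in any gene of that name. HIS4 in H. pseudoburtonii measured 116 and 113 FPKM at 0 min, 120.4 and 133 at 5 min, 104 and 99.4 at 15 min and 86.9 and 93.4 at 30 min. The HIS4 libraries lay above both 0 min libraries at 5 min and lay below both at 15 and 30 min, and none of the changes was called. In H. burtonii, HIS4 TBIG005915 had 127 and 157 FPKM at 0 min, 111 and 112 at 5 min, 79.6 and 95.6 at 15 min and 270.4 and 158 at 30 min. No HIS4 TBIG005915 change was called, although its libraries lay above both 0 min libraries at 30 min and lay below both at 5 and 15 min. It was higher at 30 than at 5 min (log2 change 0.89 ± 0.27, adjusted p = 0.0263, kept in 5 of 8 fits, lost on rescaling). HIS4 TBIG005916 in H. burtonii measured 19.6 and 35.0 FPKM at 0 min, 26.8 and 23.6 at 5 min, 22.2 and 36.6 at 15 min and 58.0 and 43.0 at 30 min. The HIS4 TBIG005916 libraries lay above both 0 min libraries at 30 min and overlapped them at 5 and 15 min, and none of the changes was called.

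Of the 5 tryptophan genes none had risen and 1 had fallen at 30 min in H. pseudoburtonii (all genes: 25.8% and 9.69%), whereas all 5 had risen in H. burtonii (all genes: 37.0%). Their median changes were -0.44 in H. pseudoburtonii and 1.23 in H. burtonii. After rescaling, none had risen and 4 of 5 had fallen in H. pseudoburtonii (all genes: 15.2% and 17.1%). In H. burtonii 4 had then risen and none had fallen (all genes: 16.9% and 18.1%). TRP2 and TRP3 form anthranilate synthase, the first step from chorismate. In H. pseudoburtonii, TRP2 had 144 and 122 FPKM at 0 min, 167 and 128 at 5 min, 128 and 88.8 at 15 min and 92.4 and 103 at 30 min. No TRP2 change was called, although its libraries lay below both 0 min libraries at 30 min and overlapped them at 5 and 15 min. TRP2 in H. burtonii measured 58.2 and 54.3 FPKM at 0 min, 30.9 and 34.9 at 5 min, 43.8 and 43.1 at 15 min and 187 and 146 at 30 min. TRP2 fell at 5 min (log2 change -0.76 ± 0.19, adjusted p = 0.0293, kept in 5 of 8 fits) and rose at 30 min (log2 change 1.54 ± 0.19, adjusted p = 0.000657), and its libraries lay above both 0 min libraries at 30 min and lay below both at 5 and 15 min. In H. pseudoburtonii, TRP3 had 98.9 and 94.4 FPKM at 0 min, 96.7 and 115 at 5 min, 97.1 and 85.9 at 15 min and 81.0 and 83.8 at 30 min. No TRP3 change was called, although its libraries lay below both 0 min libraries at 30 min and overlapped them at 5 and 15 min. In H. burtonii the same subunit gene ended higher. TRP3 in H. burtonii measured 83.4 and 64.4 FPKM at 0 min, 47.6 and 45.8 at 5 min, 74.4 and 60.1 at 15 min and 165 and 181 at 30 min. TRP3 rose at 30 min (log2 change 1.23 ± 0.20, adjusted p = 0.00219), and its libraries lay above both 0 min libraries at 30 min, lay below both at 5 min and overlapped them at 15 min. Differences at 30 min were -1.98 ± 0.31 (adjusted p = 0.000501) for TRP2 and -1.45 ± 0.27 (adjusted p = 0.00134) for TRP3.

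TRP4, anthranilate phosphoribosyltransferase, fell at 30 min in one species and rose in the other. In H. pseudoburtonii, TRP4 had 129 and 118 FPKM at 0 min, 159 and 119 at 5 min, 102 and 134 at 15 min and 79.4 and 64.7 at 30 min. The TRP4 libraries lay below both 0 min libraries at 30 min and overlapped them at 5 and 15 min, and the gene fell at 30 min (log2 change -0.77 ± 0.23, adjusted p = 0.0329, kept in 4 of 8 fits). TRP4 in H. burtonii measured 95.5 and 90.7 FPKM at 0 min, 35.9 and 30.7 at 5 min, 64.5 and 51.4 at 15 min and 202 and 225 at 30 min. TRP4 fell at 5 min (log2 change -1.46 ± 0.19, adjusted p = 0.00295) and at 15 min (log2 change -0.68 ± 0.19, adjusted p = 0.0313, kept in 1 of 8 fits) and then rose at 30 min (log2 change 1.19 ± 0.19, adjusted p = 0.00197), and its libraries lay above both 0 min libraries at 30 min and lay below both at 5 and 15 min. Its difference was 1.62 ± 0.30 (adjusted p = 0.00451) at 5 min and -1.96 ± 0.30 (adjusted p = 0.000436) at 30 min. TRP5, tryptophan synthase, is the last step. In H. pseudoburtonii, TRP5 had 113 and 144 FPKM at 0 min, 148 and 118 at 5 min, 106 and 102 at 15 min and 95.4 and 83.5 at 30 min. No TRP5 change was called, although its libraries lay below both 0 min libraries at 15 and 30 min and overlapped them at 5 min. TRP5 in H. burtonii measured 192 and 149 FPKM at 0 min, 116 and 112 at 5 min, 161 and 123 at 15 min and 437 and 443 at 30 min. TRP5 rose at 30 min (log2 change 1.37 ± 0.20, adjusted p = 0.00125), and its libraries lay above both 0 min libraries at 30 min, lay below both at 5 min and overlapped them at 15 min. TRP1 rose in H. burtonii at 15 min (log2 change 0.64 ± 0.18, adjusted p = 0.0346, kept in 0 of 8 fits, lost on rescaling) and at 30 min (log2 change 0.82 ± 0.18, adjusted p = 0.00836, lost on rescaling) and was not called in H. pseudoburtonii.

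The shared aromatic route up to chorismate held a gene that fell in both yeasts, ARO2, chorismate synthase. In H. pseudoburtonii, ARO2 had 593 and 560.3 FPKM at 0 min, 333 and 449.8 at 5 min, 275 and 313 at 15 min and 168 and 189 at 30 min. The ARO2 libraries lay below both 0 min libraries at 5, 15 and 30 min, and the gene fell at 15 min (log2 change -0.97 ± 0.18, adjusted p = 0.0123, kept in 6 of 8 fits) and at 30 min (log2 change -1.69 ± 0.18, adjusted p = 0.000719). ARO2 in H. burtonii measured 598 and 603 FPKM at 0 min, 567 and 579 at 5 min, 227 and 276 at 15 min and 249 and 238 at 30 min. ARO2 fell at 15 min (log2 change -1.26 ± 0.16, adjusted p = 0.00151) and at 30 min (log2 change -1.30 ± 0.16, adjusted p = 0.000569), and its libraries lay below both 0 min libraries at 5, 15 and 30 min. At 30 min the difference between the species was -0.38 ± 0.25 (adjusted p = 0.248). ARO1 encodes the pentafunctional enzyme of the middle steps. In H. pseudoburtonii, ARO1 had 139 and 139 FPKM at 0 min, 210.5 and 210.2 at 5 min, 241 and 177 at 15 min and 133 and 153 at 30 min. No ARO1 change was called, although its libraries lay above both 0 min libraries at 5 and 15 min and overlapped them at 30 min. ARO1 in H. burtonii measured 76.0 and 79.0 FPKM at 0 min, 67.7 and 57.6 at 5 min, 70.5 and 56.9 at 15 min and 109 and 96.6 at 30 min. The ARO1 libraries lay above both 0 min libraries at 30 min and lay below both at 5 and 15 min, and none of the changes was called. The entry enzyme has 2 forms, ARO3 and ARO4. In H. pseudoburtonii, ARO3 TBIG000521 had 136 and 119 FPKM at 0 min, 103 and 131 at 5 min, 124 and 132 at 15 min and 142 and 189.6 at 30 min. No ARO3 TBIG000521 change was called, although its libraries lay above both 0 min libraries at 30 min and overlapped them at 5 and 15 min. ARO3 TBIG001918 in H. burtonii measured 961 and 818 FPKM at 0 min, 461 and 459.8 at 5 min, 489 and 379 at 15 min and 944 and 889.7 at 30 min. ARO3 TBIG001918 fell at 5 min (log2 change -0.94 ± 0.18, adjusted p = 0.0117, kept in 6 of 8 fits) and at 15 min (log2 change -1.04 ± 0.18, adjusted p = 0.00549), and its libraries lay below both 0 min libraries at 5 and 15 min and overlapped them at 30 min. In H. pseudoburtonii ARO4 was not called at any time. In H. burtonii, ARO4 had 806 and 893 FPKM at 0 min, 868 and 963 at 5 min, 477 and 688 at 15 min and 559.6 and 541 at 30 min. The ARO4 libraries lay below both 0 min libraries at 15 and 30 min and overlapped them at 5 min, and the gene fell at 30 min (log2 change -0.62 ± 0.20, adjusted p = 0.0334, kept in 2 of 8 fits).

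Beyond chorismate, ARO7 is chorismate mutase, the branch to phenylalanine and tyrosine. ARO7 in H. pseudoburtonii measured 121 and 121 FPKM at 0 min, 125 and 133 at 5 min, 104 and 134 at 15 min and 87.4 and 92.4 at 30 min. The ARO7 libraries lay above both 0 min libraries at 5 min, lay below both at 30 min and overlapped them at 15 min, and none of the changes was called. In H. burtonii, ARO7 had 45.1 and 30.2 FPKM at 0 min, 18.0 and 26.4 at 5 min, 48.3 and 40.8 at 15 min and 68.6 and 76.2 at 30 min. The ARO7 libraries lay above both 0 min libraries at 30 min, lay below both at 5 min and overlapped them at 15 min, and the gene rose at 30 min (log2 change 0.95 ± 0.27, adjusted p = 0.0219, kept in 5 of 8 fits, lost on rescaling). ARO8, an aminotransferase for aromatic amino acids and aminoadipate, rose in both yeasts at 30 min after opposite calls at 5 min. ARO8 in H. pseudoburtonii measured 168 and 187 FPKM at 0 min, 273 and 368 at 5 min, 488 and 587 at 15 min and 1003 and 1061 at 30 min. ARO8 rose at 5 min (log2 change 0.83 ± 0.19, adjusted p = 0.0386, kept in 3 of 8 fits, lost on rescaling) at 15 min (log2 change 1.59 ± 0.19, adjusted p = 0.00185) and at 30 min (log2 change 2.53 ± 0.19, adjusted p = 0.000142), and its libraries lay above both 0 min libraries at 5, 15 and 30 min. In H. burtonii, ARO8 had 189 and 200.2 FPKM at 0 min, 107 and 126 at 5 min, 201 and 171 at 15 min and 451 and 375 at 30 min. The ARO8 libraries lay above both 0 min libraries at 30 min, lay below both at 5 min and overlapped them at 15 min, and the gene fell at 5 min (log2 change -0.74 ± 0.18, adjusted p = 0.026, kept in 4 of 8 fits) and rose at 30 min (log2 change 1.08 ± 0.18, adjusted p = 0.00241, lost on rescaling). Its differences were 1.58 ± 0.27 (adjusted p = 0.0027) at 5 min, 1.65 ± 0.27 (adjusted p = 0.00172) at 15 min and 1.46 ± 0.27 (adjusted p = 0.00148) at 30 min. ARO10, a decarboxylase that breaks aromatic amino acids down, fits the name rule only. ARO10 in H. pseudoburtonii measured 12.2 and 22.4 FPKM at 0 min, 10.1 and 14.5 at 5 min, 11.9 and 10.4 at 15 min and 42.8 and 27.2 at 30 min. The ARO10 libraries lay above both 0 min libraries at 30 min, lay below both at 15 min and overlapped them at 5 min, and none of the changes was called. In H. burtonii, ARO10 had 3.50 and 1.85 FPKM at 0 min, 4.55 and 5.81 at 5 min, 21.7 and 20.4 at 15 min and 28.7 and 23.8 at 30 min. The ARO10 libraries lay above both 0 min libraries at 5, 15 and 30 min, and the gene rose at 15 min (log2 change 2.62 ± 0.30, adjusted p = 0.00104) and at 30 min (log2 change 2.92 ± 0.30, adjusted p = 0.000268).

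At 5 min 4 of 17 sulfur members had risen in H. pseudoburtonii (all genes: 4.17%), among 7 risen of all 76 members. None of these 4 calls held in every fit that leaves out 1 library. By 30 min 8 of 17 MET and CYS members had risen in H. pseudoburtonii (all genes: 25.8%) and 3 of 16 in H. burtonii (all genes: 37.0%), and none had fallen. The difference between these shares was not tested. After rescaling the 30 min counts were 5 risen and 2 fallen in H. pseudoburtonii (all genes: 15.2% and 17.1%). They were 1 risen and 3 fallen in H. burtonii (all genes: 16.9% and 18.1%). MET1, which makes the siroheme cofactor of sulfite reductase, rose at each time. MET1 in H. pseudoburtonii measured 7.63 and 8.49 FPKM at 0 min, 28.2 and 25.0 at 5 min, 54.2 and 83.3 at 15 min and 62.0 and 42.3 at 30 min. MET1 rose at 5 min (log2 change 1.61 ± 0.31, adjusted p = 0.0234, kept in 4 of 8 fits) at 15 min (log2 change 2.91 ± 0.31, adjusted p = 0.00129) and at 30 min (log2 change 2.53 ± 0.31, adjusted p = 0.00113), and its libraries lay above both 0 min libraries at 5, 15 and 30 min. In H. burtonii, MET1 had 10.5 and 12.4 FPKM at 0 min, 11.9 and 12.6 at 5 min, 11.9 and 7.86 at 15 min and 17.5 and 17.4 at 30 min. No MET1 change was called, although its libraries lay above both 0 min libraries at 30 min and overlapped them at 5 and 15 min. The difference was 1.51 ± 0.40 (adjusted p = 0.0235, kept in 11 of 16 fits) at 5 min, 3.13 ± 0.40 (adjusted p = 0.000301) at 15 min and 1.95 ± 0.40 (adjusted p = 0.00249) at 30 min. MET5 is the beta subunit of sulfite reductase. MET5 in H. pseudoburtonii measured 76.0 and 85.2 FPKM at 0 min, 168 and 131 at 5 min, 180.1 and 182 at 15 min and 173 and 188 at 30 min. MET5 rose at 5 min (log2 change 0.87 ± 0.18, adjusted p = 0.029, kept in 3 of 8 fits) at 15 min (log2 change 1.16 ± 0.18, adjusted p = 0.00605, kept in 7 of 8 fits) and at 30 min (log2 change 1.16 ± 0.18, adjusted p = 0.00298), and its libraries lay above both 0 min libraries at 5, 15 and 30 min. In H. burtonii MET5 was not called. A further sulfur member, MET10, rose in H. burtonii at 15 and 30 min, with both calls lost on rescaling, and was not called in H. pseudoburtonii. The difference between the species was called at no time for MET5 or MET10. MET16 reduces activated sulfate. In H. pseudoburtonii, MET16 had 52.4 and 33.7 FPKM at 0 min, 116 and 90.0 at 5 min, 39.3 and 56.6 at 15 min and 97.0 and 91.7 at 30 min. The MET16 libraries lay above both 0 min libraries at 5 and 30 min and overlapped them at 15 min, and the gene rose at 5 min (log2 change 1.26 ± 0.29, adjusted p = 0.0395, kept in 2 of 8 fits) and at 30 min (log2 change 1.15 ± 0.29, adjusted p = 0.0185, kept in 5 of 8 fits, lost on rescaling). MET16 in H. burtonii measured 16.7 and 7.34 FPKM at 0 min, 5.60 and 2.44 at 5 min, 24.0 and 15.1 at 15 min and 21.9 and 26.3 at 30 min. The MET16 libraries lay above both 0 min libraries at 30 min, lay below both at 5 min and overlapped them at 15 min, and none of the changes was called. Its difference at 5 min was 2.61 ± 0.58 (adjusted p = 0.0106, kept in 15 of 16 fits).

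MET14, adenylyl-sulfate kinase, one step before MET16, was called in H. burtonii alone. In H. pseudoburtonii, MET14 had 147 and 183 FPKM at 0 min, 244 and 312 at 5 min, 139.5 and 191 at 15 min and 127 and 168 at 30 min. No MET14 change was called, although its libraries lay above both 0 min libraries at 5 min and overlapped them at 15 and 30 min. MET14 in H. burtonii measured 6.70 and 14.0 FPKM at 0 min, 18.3 and 21.7 at 5 min, 31.3 and 69.4 at 15 min and 93.7 and 91.6 at 30 min. MET14 rose at 15 min (log2 change 2.15 ± 0.42, adjusted p = 0.00933) and at 30 min (log2 change 3.12 ± 0.42, adjusted p = 0.000935), and its libraries lay above both 0 min libraries at 5, 15 and 30 min. Its difference was -2.15 ± 0.53 (adjusted p = 0.0136, kept in 14 of 16 fits) at 15 min and -3.29 ± 0.53 (adjusted p = 0.000544) at 30 min, the largest in favour of H. burtonii among member pairs at 30 min. MET3, sulfate adenylyltransferase, starts the route. In H. pseudoburtonii MET3 rose at 15 min (log2 change 0.61 ± 0.16, adjusted p = 0.0393, kept in 3 of 8 fits, lost on rescaling) and at 30 min (log2 change 0.70 ± 0.16, adjusted p = 0.0132, kept in 4 of 8 fits, lost on rescaling). In H. burtonii, MET3 had 18.2 and 21.9 FPKM at 0 min, 19.6 and 18.0 at 5 min, 36.6 and 39.0 at 15 min and 26.0 and 22.0 at 30 min. The MET3 libraries lay above both 0 min libraries at 15 and 30 min and overlapped them at 5 min, and the gene rose at 15 min (log2 change 0.89 ± 0.21, adjusted p = 0.0181, kept in 6 of 8 fits, lost on rescaling). MET2 and MET17 bring sulfide onto homoserine. MET2 in H. pseudoburtonii measured 43.5 and 47.7 FPKM at 0 min, 47.2 and 64.9 at 5 min, 18.9 and 21.1 at 15 min and 74.7 and 70.0 at 30 min. MET2 fell at 15 min (log2 change -1.15 ± 0.24, adjusted p = 0.0163, kept in 5 of 8 fits), and its libraries lay above both 0 min libraries at 30 min, lay below both at 15 min and overlapped them at 5 min. In H. burtonii, MET2 had 136 and 149.5 FPKM at 0 min, 89.2 and 76.4 at 5 min, 96.2 and 97.3 at 15 min and 120.0 and 133 at 30 min. The MET2 libraries lay below both 0 min libraries at 5, 15 and 30 min, and the gene fell at 5 min (log2 change -0.78 ± 0.17, adjusted p = 0.0178, kept in 6 of 8 fits) and at 15 min (log2 change -0.56 ± 0.17, adjusted p = 0.0413, kept in 0 of 8 fits). MET17 makes homocysteine. MET17 in H. pseudoburtonii measured 4.15 and 6.36 FPKM at 0 min, 6.57 and 2.14 at 5 min, 6.81 and 12.4 at 15 min and 29.3 and 19.9 at 30 min. MET17 rose at 30 min (log2 change 2.03 ± 0.54, adjusted p = 0.0226, kept in 4 of 8 fits), and its libraries lay above both 0 min libraries at 15 and 30 min and overlapped them at 5 min. In H. burtonii, MET17 had 17.0 and 22.9 FPKM at 0 min, 20.2 and 24.1 at 5 min, 20.5 and 27.1 at 15 min and 27.1 and 22.1 at 30 min. The later MET17 libraries overlapped those of 0 min, and no change was called. Its difference at 30 min was 1.73 ± 0.59 (adjusted p = 0.0364, kept in 9 of 16 fits).

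MET13, methylenetetrahydrofolate reductase, supplies the methyl group of methionine. MET13 in H. pseudoburtonii measured 13.8 and 20.8 FPKM at 0 min, 49.0 and 65.3 at 5 min, 30.7 and 33.1 at 15 min and 69.8 and 52.5 at 30 min. MET13 rose at 5 min (log2 change 1.68 ± 0.29, adjusted p = 0.0151, kept in 5 of 8 fits) and at 30 min (log2 change 1.78 ± 0.29, adjusted p = 0.00364), and its libraries lay above both 0 min libraries at 5, 15 and 30 min. In H. burtonii, MET13 had 18.1 and 20.1 FPKM at 0 min, 8.54 and 9.83 at 5 min, 11.0 and 12.4 at 15 min and 20.6 and 22.3 at 30 min. The MET13 libraries lay above both 0 min libraries at 30 min and lay below both at 5 and 15 min, and the gene fell at 5 min (log2 change -0.98 ± 0.22, adjusted p = 0.0208, kept in 6 of 8 fits). The gene was called in opposite directions at 5 min, with a difference of 2.66 ± 0.35 (adjusted p = 0.000532), and at 30 min the difference was 1.61 ± 0.35 (adjusted p = 0.00395). CYS2 acetylates serine and CYS3 is cystathionine gamma-lyase, which releases cysteine. CYS2 in H. pseudoburtonii measured 39.8 and 31.9 FPKM at 0 min, 42.9 and 47.3 at 5 min, 11.3 and 31.0 at 15 min and 57.2 and 52.7 at 30 min. The CYS2 libraries lay above both 0 min libraries at 5 and 30 min and lay below both at 15 min, and none of the changes was called. In H. burtonii, CYS2 had 14.6 and 18.5 FPKM at 0 min, 12.1 and 13.4 at 5 min, 26.7 and 28.5 at 15 min and 33.1 and 32.5 at 30 min. The CYS2 libraries lay above both 0 min libraries at 15 and 30 min and lay below both at 5 min, and the gene rose at 15 min (log2 change 0.71 ± 0.21, adjusted p = 0.04, kept in 1 of 8 fits, lost on rescaling) and at 30 min (log2 change 0.95 ± 0.21, adjusted p = 0.00832, kept in 7 of 8 fits, lost on rescaling). CYS3 was not called in H. pseudoburtonii, and in H. burtonii it was the one member that rose at 5 min. CYS3 in H. burtonii measured 238 and 238 FPKM at 0 min, 498 and 511 at 5 min, 233 and 329 at 15 min and 227 and 193 at 30 min. CYS3 rose at 5 min (log2 change 1.08 ± 0.20, adjusted p = 0.0107, kept in 6 of 8 fits), and its libraries lay above both 0 min libraries at 5 min, lay below both at 30 min and overlapped them at 15 min. MET7 and MET6, of folate and methionine synthesis, rose at 30 min in H. pseudoburtonii (log2 change 1.40 ± 0.24, adjusted p = 0.00451, and log2 change 0.59 ± 0.14, adjusted p = 0.0171, kept in 4 of 8 fits, lost on rescaling). In H. burtonii MET7 and MET6 were not called, with 30 min changes of 1.10 and 0.51. Their differences between the species at 30 min, 0.30 ± 0.50 (adjusted p = 0.674) and 0.08 ± 0.26 (adjusted p = 0.831), were not called. MET22, a phosphatase inhibited by sodium in Saccharomyces cerevisiae, was among the genes set to be printed, but no member of that name was found in either species.

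No serine member was called in either species at any time against 0 min. After rescaling, however, 1 was called lower in H. pseudoburtonii at 30 min (all genes: 17.1%). Serine is made from 3-phosphoglycerate by SER3 or SER33, SER1 and SER2. In H. pseudoburtonii, SER3 had 296 and 344 FPKM at 0 min, 295 and 254 at 5 min, 241 and 262 at 15 min and 313 and 313 at 30 min. No SER3 change was called, although its libraries lay below both 0 min libraries at 5 and 15 min and overlapped them at 30 min. SER33 takes its place in the other table. SER33 in H. burtonii measured 42.1 and 146 FPKM at 0 min, 125 and 153 at 5 min, 113 and 236 at 15 min and 190.0 and 176 at 30 min. The SER33 libraries lay above both 0 min libraries at 30 min and overlapped them at 5 and 15 min, and none of the changes was called. In H. burtonii replicate 1 was far below replicate 2 at 0 and 15 min, so the spread was wide. In H. pseudoburtonii, SER1 had 223 and 218 FPKM at 0 min, 209 and 298 at 5 min, 221 and 191 at 15 min and 151 and 158 at 30 min. No SER1 change was called, although its libraries lay below both 0 min libraries at 30 min and overlapped them at 5 and 15 min. SER1 in H. burtonii measured 97.5 and 229 FPKM at 0 min, 126 and 171 at 5 min, 86.6 and 158 at 15 min and 291 and 134 at 30 min. No SER1 change was called, and the later libraries overlapped those of 0 min. SER2, the phosphatase, ends the route. In H. pseudoburtonii, SER2 had 172 and 171 FPKM at 0 min, 186 and 197 at 5 min, 208 and 172 at 15 min and 161 and 184 at 30 min. No SER2 change was called, although its libraries lay above both 0 min libraries at 5 and 15 min and overlapped them at 30 min. SER2 in H. burtonii measured 61.7 and 43.5 FPKM at 0 min, 33.7 and 40.1 at 5 min, 50.1 and 53.8 at 15 min and 58.3 and 62.4 at 30 min. The SER2 libraries lay below both 0 min libraries at 5 min and overlapped them at 15 and 30 min, and none of the changes was called.

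Over the 62 member pairs tested in both species, this difference was called higher for 18 pairs and lower for none at 5 min, where 7.86% and 7.68% of 3399 tested pairs were called. At 15 min it was higher for 11 and lower for 4 (all pairs: 5.88% and 14.9%), and at 30 min higher for 8 and lower for 17 (all pairs: 12.8% and 23.3%). Median differences over members were 0.63, 0.19 and -0.35 at 5, 15 and 30 min, and relative to all pairs 0.58, 0.51 and -0.07. The median over members was thus above that over all pairs at 5 and 15 min and close to it at 30 min. At 5 min no pair of the aspartate family or serine was called, and at 30 min 4 of 6 aspartate and 6 of 12 aromatic pairs were lower, with 1 aromatic pair higher. The 18 became 10 and 9 without H. burtonii 5 min replicate 1 and 2 and 9 and 10 without H. pseudoburtonii 0 min replicate 1 and 2, and the none lower became 1 without H. burtonii 15 min replicate 2, H. pseudoburtonii 5 min replicate 1 or either H. pseudoburtonii 15 min library. The 11 became 7 without either H. pseudoburtonii 0 min library, and the 4 became 2 without H. burtonii 15 min replicate 2 or H. pseudoburtonii 0 min replicate 2. The 8 became 5 without H. burtonii 0 min or 30 min replicate 2 or H. pseudoburtonii 0 min or 30 min replicate 1.

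**Figure D4:**
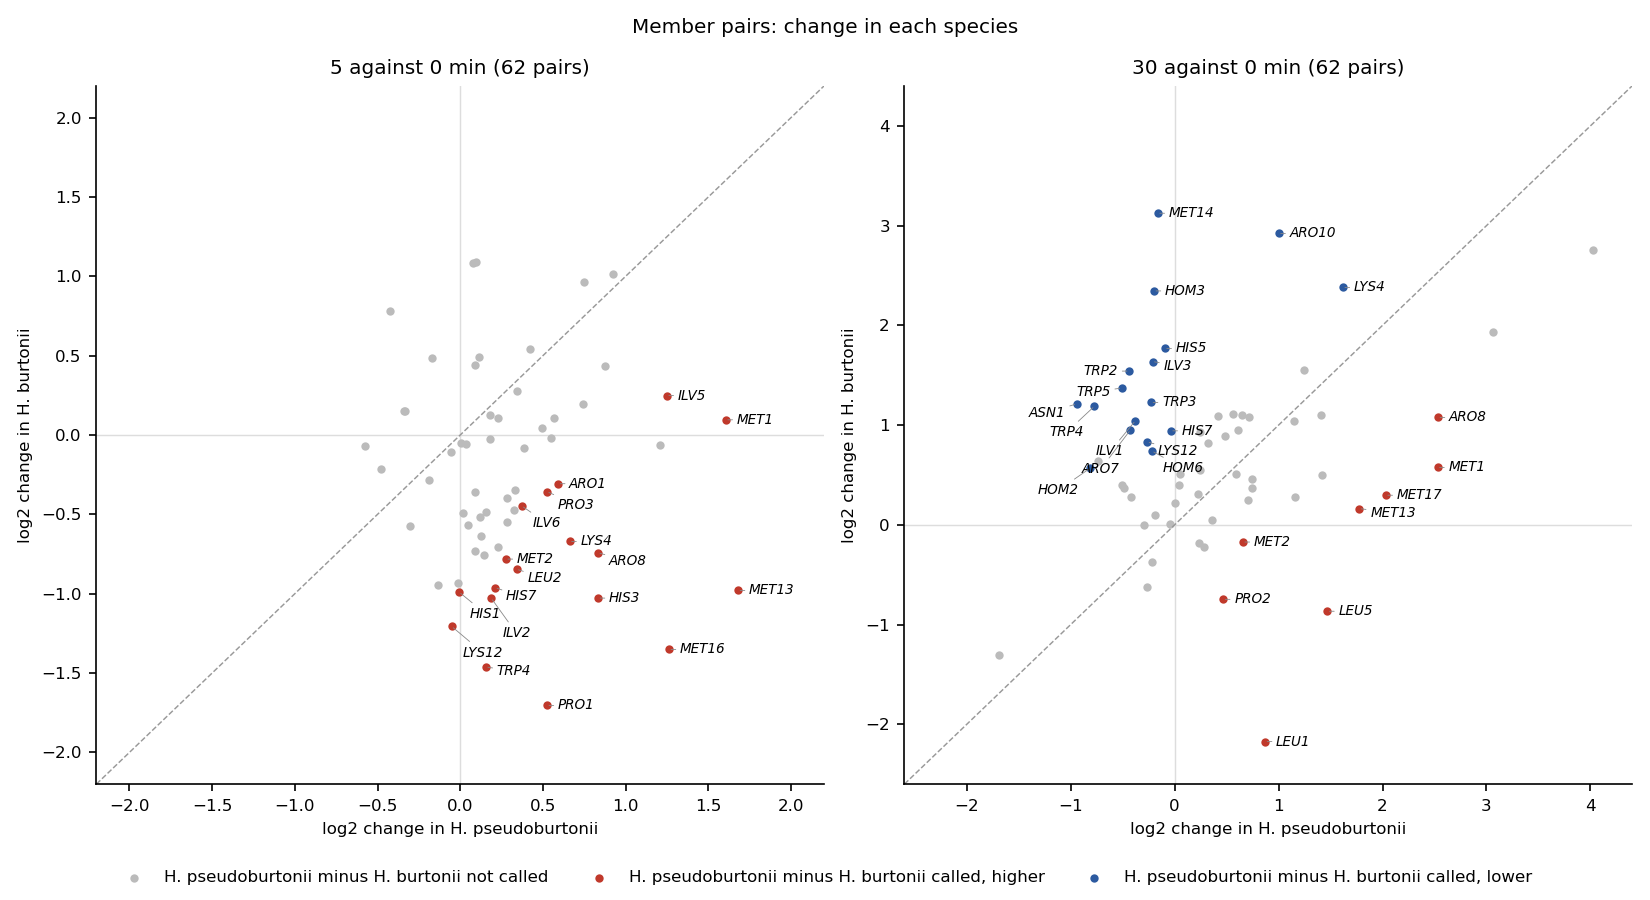
Log2 change of FPKM + 1 from 0 min in H. pseudoburtonii (horizontal axis) and H. burtonii (vertical axis) for the 62 tested member pairs at 5 min (left) and 30 min (right), with the diagonal of equal change dashed and pairs whose difference was called named in red (higher in H. pseudoburtonii) or blue (lower). At 5 min all 18 named pairs lie right of the diagonal, and at 30 min 17 lie left of it and 8 right of it.

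At 30 min 7 pairs (ARG4, ILV5, HIS3, ARG1, LYS1, LYS4 and ARO8) were higher in both species, ARO2 was lower in both, LEU1 and LEU5 were higher in H. pseudoburtonii and lower in H. burtonii, and ASN1, HOM2 and TRP4 were lower in H. pseudoburtonii and higher in H. burtonii. A further 10 pairs were higher in H. pseudoburtonii and not called in H. burtonii, and 20 were higher in H. burtonii and not called in H. pseudoburtonii. The shares of these combinations over all pairs were not computed. Of all tested genes, 25.8% rose in H. pseudoburtonii and 37.0% in H. burtonii at 30 min. Of the members' rises at 30 min, rescaling kept 14 of 24 in H. pseudoburtonii and 20 of 38 in H. burtonii.

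Members lay on 8 chromosomes in each species, and none overlapped another gene. In 4 cases H. burtonii had 2 neighbouring genes of one name on one strand, less than 100 bases apart, where H. pseudoburtonii had 1 longer gene. ARG8 covered 1386 bases in H. pseudoburtonii (chromosome 6, 1015661 to 1017046, in the coordinates of the files, which name no genome build), and 711 and 585 bases in H. burtonii (chromosome 1, 1507221 to 1507931 and chromosome 1, 1508024 to 1508608), 92 bases apart. LYS2 covered 4218 bases in H. pseudoburtonii, and 1485 and 2706 bases 8 bases apart in H. burtonii. ARG2 covered 1734 bases, against 507 and 1143 bases 98 apart, and HIS4 covered 2598 bases, against 768 and 1727 bases 86 apart. Whether such neighbours are 2 genes or pieces of 1 was not tested, and counting each couple once changed no count of calls by over 1.5 times. The 2 BAT2 genes of H. burtonii, 1116 and 1095 bases long, stood 653 bases apart, and the BAT2 gene of H. pseudoburtonii was 4587 bases long.

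Some members of different pathways are neighbours in both genomes. Of the 63 member pairs, 6 couples lay within 4 gene positions of each other in each species, and none did so in 1 species alone. They are ARG2 with ARO4, ARG4 with HIS2, ILV1 with SER1, MET17 with PRO3, MET6 with TRP2, and PRO2 with met8, which adjoin. At 30 min the 2 genes of a couple stood alike in both species in 2 of the 6 couples. The same share over members that are not neighbours was not computed, so the count cannot be ascribed to their position. MET17 and PRO3 both rose in H. pseudoburtonii and were not called in H. burtonii, whereas PRO2 and met8 were called in neither species. In the other 4 couples the 2 genes differed in at least 1 species. ARG4, for one, rose in both species and HIS2 was called in neither.

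Other genes of amino acid metabolism that the name rule leaves out, among them glutamate, glycine and one-carbon genes, were counted as a list of their own. The genes named str3 were left out of it, since both tables describe them as siderophore transporters. At 30 min 7 of 21 had risen and 4 had fallen in H. pseudoburtonii (all genes: 25.8% and 9.69%), and 7 of 23 had risen and 4 had fallen in H. burtonii (all genes: 37.0% and 11.1%). The list's medians minus those of all genes were -0.32 in H. pseudoburtonii and -0.46 in H. burtonii. At 30 min the difference between the species was called positive in this list for ALT1 (4.95), GLN1 (2.79), GLT1 (2.02) and SAM1 (0.99). It was called negative for ORT1 (-4.10), PHA2 (-2.78), GCV1 (-1.34) and GCV2 (-0.83, lost on rescaling). The fits without 1 library are not given for these differences. The next genes, ALT1 and GLN1, were chosen after their values were seen. ALT1, alanine aminotransferase, measured 48.0 and 44.1 FPKM at 0 min, 95.0 and 74.4 at 5 min, 119 and 115 at 15 min and 346 and 384 at 30 min in H. pseudoburtonii. ALT1 measured 206 and 251 FPKM at 0 min, 100.3 and 97.8 at 5 min, 115 and 117 at 15 min and 56.8 and 55.9 at 30 min in H. burtonii. It rose at each time in H. pseudoburtonii (kept in 3 of 8 fits at 5 min) and fell at each time in H. burtonii (kept in 7 of 8 fits at 5 min), with a 30 min change of 2.96 ± 0.19 (adjusted p = 7.22e-05) and -1.99 ± 0.17 (adjusted p = 0.000106). GLN1, glutamine synthetase, rose at 15 min (log2 change 0.87 ± 0.16, adjusted p = 0.0105, kept in 6 of 8 fits) and at 30 min (log2 change 1.23 ± 0.16, adjusted p = 0.00142) in H. pseudoburtonii. In H. burtonii GLN1 fell at 5 min (log2 change -0.73 ± 0.20, adjusted p = 0.0401, kept in 2 of 8 fits, lost on rescaling) at 15 min (log2 change -1.33 ± 0.20, adjusted p = 0.00378) and at 30 min (log2 change -1.56 ± 0.20, adjusted p = 0.00081).

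Of the regulators, 4 of 16 had risen at 30 min in H. pseudoburtonii and none had fallen (all genes: 25.8% and 9.69%), and 5 of 21 had risen and 3 had fallen in H. burtonii (all genes: 37.0% and 11.1%). In H. pseudoburtonii, GCN4 had 294 and 256 FPKM at 0 min, 402 and 415 at 5 min, 522 and 482 at 15 min and 433 and 513 at 30 min. The GCN4 libraries lay above both 0 min libraries at 5, 15 and 30 min, and the gene rose at 15 min (log2 change 0.87 ± 0.16, adjusted p = 0.0099, kept in 6 of 8 fits) and at 30 min (log2 change 0.78 ± 0.16, adjusted p = 0.00781, kept in 6 of 8 fits, lost on rescaling). GCN4 in H. burtonii measured 1426 and 1115 FPKM at 0 min, 1157 and 1096 at 5 min, 1714 and 1249 at 15 min and 3059 and 3279.8 at 30 min. GCN4 rose at 30 min (log2 change 1.33 ± 0.20, adjusted p = 0.00167), and its libraries lay above both 0 min libraries at 30 min and overlapped them at 5 and 15 min. The difference in the GCN4 change was not called at any time. In H. pseudoburtonii, LEU3 had 21.1 and 24.0 FPKM at 0 min, 26.5 and 12.7 at 5 min, 11.4 and 13.6 at 15 min and 30.8 and 32.9 at 30 min. No LEU3 change was called, although its libraries lay above both 0 min libraries at 30 min, lay below both at 15 min and overlapped them at 5 min. LEU3 in H. burtonii measured 18.2 and 18.1 FPKM at 0 min, 17.5 and 13.6 at 5 min, 22.7 and 19.8 at 15 min and 13.0 and 17.5 at 30 min. The LEU3 libraries lay above both 0 min libraries at 15 min and lay below both at 5 and 30 min, and none of the changes was called. MET32, a regulator of sulfur genes, rose at 30 min (log2 change 1.23 ± 0.32, adjusted p = 0.0202, kept in 4 of 8 fits, lost on rescaling) in H. pseudoburtonii. In H. burtonii MET32 fell at 15 min (log2 change -0.93 ± 0.22, adjusted p = 0.0196, kept in 6 of 8 fits) and at 30 min (log2 change -2.78 ± 0.22, adjusted p = 9.28e-05). The part of regulators in the members' changes was not tested.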

How the data were processed

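RNA-seq libraries of 2 Hyphopichia strains were grouped by species and time from the labels, 2 in each of 8 groups. The authors deposited 1 table of FPKM per gene for each species. Per the submitters' processing notes the processing used TopHat2 2.1.1 and Cufflinks 2.2.1 among other tools (CASAVA 1.8.2, FastQC 0.11.8), in no stated order. No source used here gives the genome build or says how reads shared by near-identical genes were divided, so values of repeated names are uncertain. Both species use the same gene IDs, which do not pair their genes.

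From the deposited FPKM, log2(FPKM + 1) was fitted in each species with limma 3.58.1 (R 4.3.3) with a trend in the prior variance, with 1 mean per time. Genes with at least 1 FPKM in at least 2 of 8 libraries were tested, two-sided, with Benjamini-Hochberg adjustment over all of them at 0.05. Every FPKM column of the tables was used. For species differences, genes were paired by the annotated Swiss-Prot entry where it occurred once in each table (3235 pairs) and otherwise by a name occurring once in each (180 pairs), so a pair may join paralogs, and all 16 libraries were fitted together. The fits were tested on simulated data. Summaries used pandas 2.3.3 and numpy 2.4.6 (Python 3.11.15), and figures matplotlib 3.10.9.

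FPKM of every library are printed for, in each pathway and species, up to 3 members with the smallest adjusted p. They are also printed for the 5 members with the largest and the 5 with the smallest called change in each comparison, with some but not all of their counterparts. The others printed are member pairs called between the species and a fixed set (HOM3, LEU4, ARG1, HIS4, LYS9, PRO1, MET17 and SER33). MET22 was also in the fixed set, but no member had that name. The members and lists were chosen with earlier results of these data known. Alternatives were other scalings (median-ratio, quantile), pseudocounts of 0.1 and 10, other filters, no trend, a replicate block, a 2-fold minimum and leaving out each library. Leaving out members whose names are not of synthesis enzymes, merging neighbours of one name and leaving str3 out of the list of other genes were chosen after seeing the data.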

Additional observations from a re-analysis of the deposited data

Results flagged for a closer look

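Each result here is a member pair whose change from 0 min differed between the species, given as the H. pseudoburtonii log2 change minus the H. burtonii one and tested as that difference in limma, with p-values adjusted over 3399 pairs. The call was made for 18 pairs at 5 min, 15 at 15 min and 25 at 30 min, 58 in all, and of these 8, 7 and 17 held in all 16 fits that leave out 1 library. Where a call was not kept in all of these fits, or was lost after rescaling by median ratios, this stands in parentheses after the gene. The 3 times share the 0 min libraries. With 2 libraries in each group, no single library could be tested as an outlier.

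At 5 min every called difference was in favour of H. pseudoburtonii, where 7.86% of all pairs were called higher and 7.68% lower. HIS3, MET13 and ARO8 rose in H. pseudoburtonii and fell in H. burtonii. The positive differences were 2.66 for MET13, 2.61 for MET16 (15 of 16), 2.23 for PRO1, 1.86 for HIS3, 1.62 for TRP4, 1.58 for ARO8, 1.51 for MET1 (11 of 16), 1.33 for LYS4 and 1.22 for ILV2. Smaller ones were 1.19 for LEU2 (14 of 16), 1.17 for HIS7, 1.16 for LYS12 (10 of 16), 1.06 for MET2 (12 of 16), 1.00 for ILV5 (10 of 16), 0.98 for HIS1 (10 of 16, lost on rescaling), 0.90 for ARO1 (4 of 16, lost on rescaling), 0.88 for PRO3 (3 of 16, lost on rescaling) and 0.82 for ILV6 (10 of 16).

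At 15 min 11 called differences were positive and 4 negative, where 5.88% of all pairs were called higher and 14.9% lower. LEU1 then rose in H. pseudoburtonii and fell in H. burtonii. The positive differences were 3.13 for MET1, 2.14 for LEU1, 1.83 for ARG1 (13 of 16), 1.65 for ARO8, 1.54 for MET13 (15 of 16) and 1.36 for ILV5. Smaller ones were 1.17 for PRO1 (12 of 16), 1.07 for ILV2, 1.04 for ARO3 (13 of 16), 0.85 for ARO1 (4 of 16) and 0.69 for ILV6 (4 of 16). The negative differences were -3.16 for ARO10, -2.15 for MET14 (14 of 16), -1.59 for CYS2 (4 of 16, lost on rescaling) and -0.99 for HOM2.

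At 30 min 8 called differences were positive and 17 negative, and calls over all pairs leaned the same way (12.8% and 23.3%). LEU1 and LEU5 on one side and ASN1, HOM2 and TRP4 on the other were called in opposite directions in the 2 species. The positive differences were 3.04 for LEU1, 2.34 for LEU5, 1.95 for MET1, 1.73 for MET17 (9 of 16), 1.61 for MET13, 1.46 for ARO8, 1.21 for PRO2 (10 of 16) and 0.83 for MET2 (9 of 16). The negative differences were -3.29 for MET14, -2.54 for HOM3, -2.16 for ASN1, -1.98 for TRP2, -1.96 for TRP4, -1.92 for ARO10 (15 of 16), -1.88 for TRP5, -1.86 for HIS5 and -1.85 for ILV3. Smaller ones were -1.45 for TRP3, -1.42 for ILV1 (13 of 16), -1.38 for HOM2, -1.38 for ARO7, -1.10 for LYS12 (13 of 16), -0.98 for HIS7 (14 of 16), -0.96 for HOM6 and -0.76 for LYS4 (6 of 16, lost on rescaling).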

How the results depend on the processing

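Scaling moved several counts of called members. After median-ratio scaling H. pseudoburtonii had 14 members higher and 19 lower at 30 min (24 and 4 as deposited) and 8 higher and 19 lower for 30 against 5 min (13 and 9). H. burtonii then had 2 higher and 23 lower at 15 min (7 and 14), 20 higher and 10 lower at 30 min (38 and 5), and 9 lower for 30 against 5 min (5), and 1 pair was lower in the species difference at 5 min (0). Quantile scaling left 10 lower at 30 min and 8 higher and 20 lower for 30 against 5 min in H. pseudoburtonii, and 3 higher at 15 min, 24 higher at 30 min and 9 lower for 30 against 5 min in H. burtonii. It also turned the median of members minus that of all genes in H. pseudoburtonii to 0.05 at 15 min and 0.16 at 30 min, against -0.06 and -0.13. Without a trend in the prior variance H. pseudoburtonii had 3 higher at 5 min (7) and 5 lower for 30 against 5 min (9). Asking for at least a 2-fold change left H. pseudoburtonii with 4 higher at 5 min, 8 higher and 2 lower at 15 min, 15 higher and 1 lower at 30 min and 2 lower for 30 against 5 min. The same rule left H. burtonii with 9 lower at 5 min, 3 higher and 7 lower at 15 min, 3 lower at 30 min and 3 lower for 30 against 5 min. The single member that reversed was HIS1 of H. burtonii at 30 min, at -0.0012 after median-ratio scaling. The cause was not tested. Other pseudocounts (0.1 and 10), no filter and a filter at 10 FPKM moved none of these counts by over 1.5 times.

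Leaving out 1 library, which leaves its time with 1 library assumed to vary like the others, gave these ranges of members higher and lower. H. pseudoburtonii had 1 to 8 and 0 to 0 at 5 min, 5 to 17 and 0 to 6 at 15 min, 12 to 25 and 2 to 5 at 30 min, and 6 to 18 and 2 to 12 for 30 against 5 min. H. burtonii had 0 to 7 and 3 to 22 at 5 min, 2 to 12 and 7 to 10 at 15 min, 28 to 40 and 3 to 5 at 30 min, and 40 to 54 and 3 to 5 for 30 against 5 min. Species differences were 9 to 22 and 0 to 1 at 5 min, 7 to 11 and 2 to 6 at 15 min, and 5 to 10 and 13 to 18 at 30 min. For single genes, 4771 of 5280 values without 1 library kept their direction and side of the threshold, and 4383 of 4588 did so under the other settings.

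The replicate numbers were shared between times, but same-numbered libraries did not deviate together in every pair of times (r of -0.092 to 0.038 in H. pseudoburtonii and -0.164 to 0.459 in H. burtonii), so pairing was not used. A replicate block gave 2 in place of 1 member higher at 5 min in H. burtonii and moved no other count by over 1.5 times. No depth in counts was given, so no counting interval could be set, and 2 libraries a group limit every test.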
